A study of Mus musculus with 14 samples.

Results

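Gene counts of sorted microglia from the cerebral cortex of mice 7 days after a focal ischemic stroke were compared with those of sham-operated mice. The 4 libraries, 2 at day 7 and 2 from sham, were taken by the time point and replicate number in their titles and are part of a series of 14 libraries, whose other 10 belong to days 1, 3, 21, 60 and 90 after stroke. All animals were C57BL/6 mice aged 8 to 10 weeks, with no genetic change named. In the day 7 group the distal middle cerebral artery was tied off permanently and both common carotid arteries were closed for 7 min, while the sham group had lesions of the skull surface and no vessel was closed. Neither the sort gate nor the time between sham surgery and sampling is stated in the labels. Whether the 2 libraries of a group come from separate animals is not stated either, so p-values measure only the spread between these libraries, which may be technical.

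Microglia are the resident macrophages of the brain and are kept in a homeostatic state by signals such as colony-stimulating factor 1 and transforming growth factor beta. After ischemia the infarct also draws in neutrophils, monocytes and other blood cells, while microglia and macrophages take up dying cells and myelin, digest them in lysosomes and handle the lipid that is released. In this phase microglia can divide, secrete cytokines and growth factors, and switch on a set of genes first described in models of neurodegeneration and known as the disease-associated microglia program.

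The day 7 libraries held 18500290 and 134103031 counts and the sham libraries 15254983 and 100625099 counts, replicate 1 given first here and below, and 13861 of the 14084 genes in the table were tested. Levels of genes are CPM (counts of the gene per 1000000 counts of its library) after scaling by TMM factors, sums over marker lists are CPM without these factors, and ± is 1 standard error of a log2 fold change, with n = 2 libraries per group throughout. The libraries were sorted as microglia, and their marker genes did not all go with that label. The 12 microglial markers summed to 5818 and 10912 CPM in the day 7 libraries and to 847 and 495 CPM in the sham libraries, and none of the 12 was at 0 in any of the 4. The 19 neutrophil markers summed to 380 and 958 CPM in the day 7 libraries, against 22385 and 33535 CPM in the sham libraries and 918 to 8008 CPM in the 10 libraries of other times. Of these 19 genes 10 were called lower at day 7 and Stfa1, Stfa2 and BC100530 had no count there. The sham libraries thus held more neutrophil than microglial marker transcript, and they were set apart from all 12 stroke libraries on the first principal component, at -187 and -142 against -66.1 to 115.

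**Figure D1:**
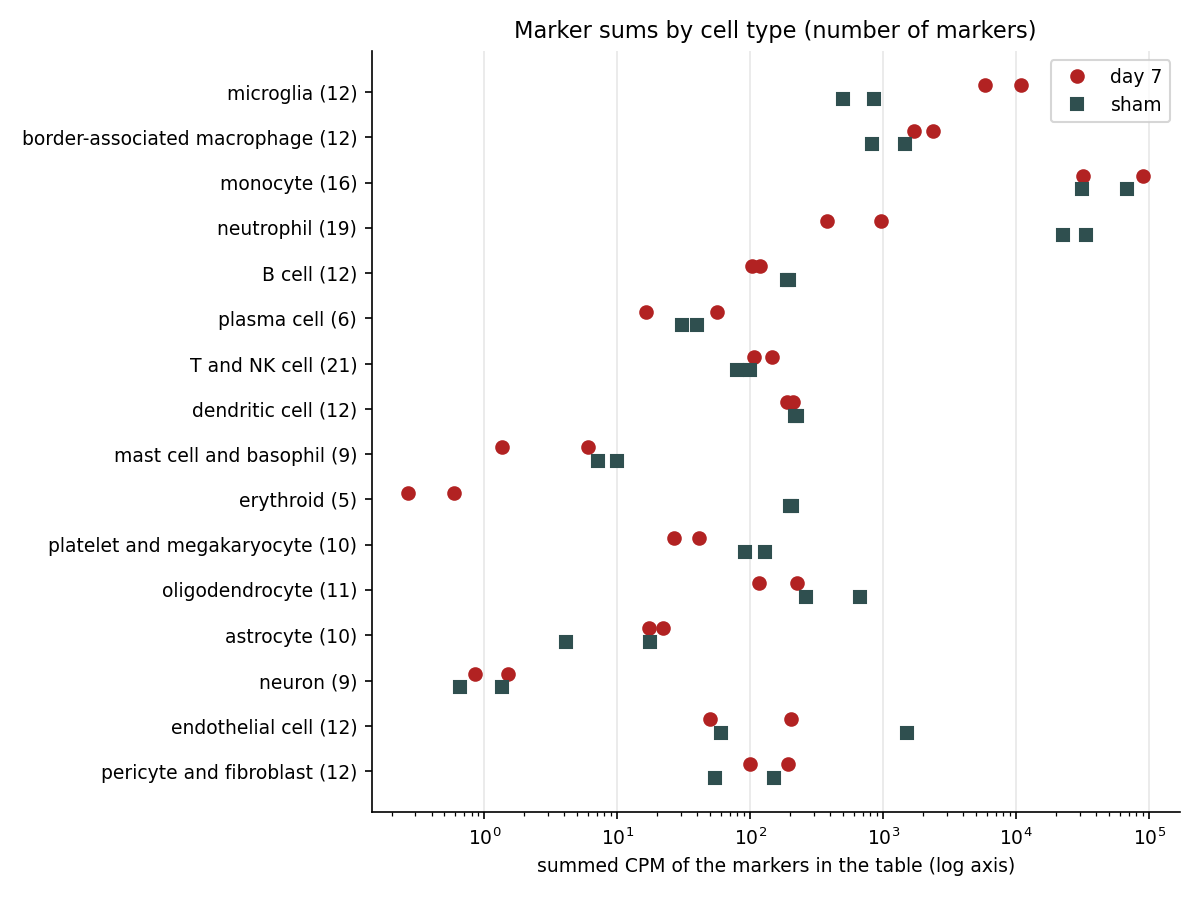
Summed CPM of marker genes in the table for 16 cell types (log axis), with 1 point per library, day 7 as circles above and sham as squares below. Neutrophil, erythroid, B cell and platelet sums of both day 7 libraries lie below both sham libraries, and microglial sums lie above, with 5818 and 10912 CPM at day 7 and 847 and 495 CPM in sham.

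Markers of other blood cells were also unequal between the groups. The 5 erythroid markers in the table summed to 0.595 and 0.268 CPM in the day 7 libraries, against 200.5 and 207 CPM in the sham libraries, with Slc4a1 among those at 0 at day 7. Alas2 alone gave 0.162 and 0 CPM at day 7 and 195.7 and 203.6 CPM in sham. Of the 5 genes 3 had both day 7 libraries below both sham libraries and 1 had both above. The 10 platelet markers summed to 26.7 and 41.2 CPM at day 7 and to 129 and 91.9 CPM in sham, with Gp1bb and Gp6 among those at 0 at day 7, and 6 of the 10 fell. Pf4, also a border-associated macrophage marker, alone gave 25.9 and 39.7 CPM at day 7, against 8.52 and 13.4 CPM in sham. Of the 10 genes 9 had both day 7 libraries below both sham libraries. The 12 B cell markers summed to 118 and 103 CPM at day 7 and to 189 and 197 CPM in sham, where Cd22 alone gave 104 and 89.4 CPM at day 7, against 16.2 and 11.8 CPM in sham. Of the 12 genes 7 fell, 11 had both day 7 libraries below both sham libraries, Pax5 and Vpreb3 were at 0 at day 7, and the median log2 fold change was -5.85. The 16 monocyte markers overlapped in their sum, with 31790 and 89942 CPM at day 7 and 31242 and 67732 CPM in sham, of which Lyz2 alone gave 30383 and 69896 CPM at day 7 and 21352 and 40654 CPM in sham. None of the 16 had both day 7 libraries above both sham libraries and 11 had both below, with a median log2 fold change of -3.01, and 5 fell, Ly6c2, Plac8, Treml4 and Hp among them. Endothelial markers summed to 49.6 and 203 CPM at day 7 and to 59.7 and 1508 CPM in sham. Ly6c1, which is also on the monocyte list, alone gave 0.919 and 155 CPM at day 7 and 0.0656 and 1461 CPM in sham. In a bulk library fewer cells of a type and less RNA per cell cannot be told apart, and the part of these cells in the results below was not tested except where a value is given.

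Transcript of phagocytosis, lysosome, lipid, complement C1q, growth factor and cell division genes was higher in the day 7 libraries than in the sham libraries. Transcript of chemokine receptor, interferon response and neutrophil marker genes was lower. The part that unequal cell types have in these differences was not tested. A gene was called at an edgeR quasi-likelihood p under 0.05 after Benjamini-Hochberg adjustment over all genes tested. At this threshold 970 genes were higher and 781 were lower at day 7, 7.00% and 5.63% of the 13861 tested, and all 1751 (12.6%) had no overlap between the day 7 and the sham libraries. Without regard to the test, 4449 genes (32.1%) had both day 7 libraries above both sham libraries and 3832 (27.6%) both below. Counts of list and marker genes are to be read against these shares. The log2 fold changes taken within replicate 1 and within replicate 2 had the same sign in 82.3% of genes. The 2 depths differ several-fold between replicate numbers, so the fold change within each replicate number is given beside the pooled one. Leaving out 1 library left 1 sample in its group, which is then assumed to vary like the other groups. The count fell to 355 without day 7 replicate 1, 464 without day 7 replicate 2, 390 without sham replicate 1 and 413 without sham replicate 2. The split moved too, to 310 higher and 45 lower, 369 and 95, 222 and 168, and 198 and 215 in these fits, in that order, and to 896 higher and 970 lower with limma-voom. Of the 1751 genes, 170 kept their call in all 4 of these fits.

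**Figure D2:**
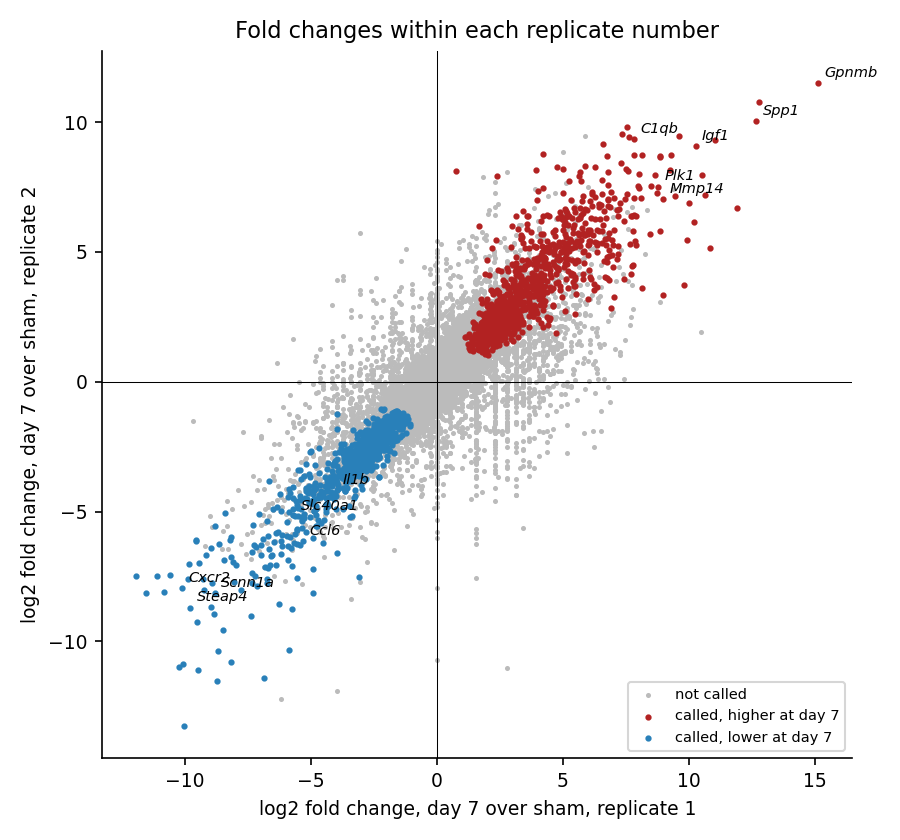
Log2 fold change of day 7 over sham within replicate 1 (horizontal) and within replicate 2 (vertical) for each gene tested, with called genes in red (970 higher) and blue (781 lower) and the rest in grey. Every called gene lies in the upper right or lower left, and Gpnmb, at 15.13 in replicate 1 and 11.51 in replicate 2, is the farthest to the right.

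The 12 higher genes with the largest change among those of at least moderate abundance were Gpnmb, Spp1, Syngr1, Igf1, Gas6, Hpgds, C1qb, C1qa, C1qc, Lhfpl2, Dab2 and Pmepa1. Gpnmb, a membrane glycoprotein of phagocytic macrophages, had 16108 and 14394 CPM in the day 7 libraries, against 0.424 and 4.92 CPM in the sham libraries. Both day 7 libraries lay far above both sham libraries, with a log2 fold change of 12.45 ± 1.90 (edgeR adjusted p = 0.00356), 15.13 in replicate 1 and 11.51 in replicate 2. Spp1, the gene of the secreted matrix protein osteopontin, had 66734 and 75153 CPM in the day 7 libraries, against 10.1 and 70.96 CPM in the sham libraries. Spp1 alone made up 7.45% and 6.77% of all counts in the day 7 libraries, where Ctsd, Apoe and Lyz2 were the other 3 most abundant genes, and it rose with a log2 fold change of 10.77 ± 1.45 (edgeR adjusted p = 0.002), 12.68 in replicate 1 and 10.05 in replicate 2. The growth factor gene Igf1 had 331 and 369 CPM in the day 7 libraries, against 0.243 and 0.665 CPM in the sham libraries. Igf1 was near absent from both sham libraries and rose with a log2 fold change of 9.50 ± 1.40 (edgeR adjusted p = 0.00312), 10.27 in replicate 1 and 9.06 in replicate 2. Gas6, which links exposed phosphatidylserine on dying cells to receptors such as Mertk and Axl, had 279.7 and 421 CPM in the day 7 libraries, against 0.424 and 0.963 CPM in the sham libraries. The 2 groups were fully separate for Gas6, with a log2 fold change of 8.92 ± 1.19 (edgeR adjusted p = 0.002), 9.28 in replicate 1 and 8.74 in replicate 2.

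Syngr1, a vesicle membrane protein gene, had 393 and 408 CPM in the day 7 libraries, against 0.485 and 0.547 CPM in the sham libraries. The libraries of each group were close to each other, and Syngr1 rose with a log2 fold change of 9.59 ± 1.63 (edgeR adjusted p = 0.00624), 9.59 in replicate 1 and 9.48 in replicate 2. Hpgds, which encodes a prostaglandin D synthase, had 139 and 191 CPM in the day 7 libraries, against 0.728 and 0.190 CPM in the sham libraries. Both sham libraries were low, and Hpgds rose with a log2 fold change of 8.63 ± 1.45 (edgeR adjusted p = 0.00574), 7.53 in replicate 1 and 9.80 in replicate 2. Dab2, an adaptor of endocytosis, had 329.5 and 203 CPM in the day 7 libraries, against 0.0606 and 1.96 CPM in the sham libraries. The sham libraries differed from each other for Dab2 but stayed below both day 7 libraries, with a log2 fold change of 7.95 ± 1.18 (edgeR adjusted p = 0.00317), 11.91 in replicate 1 and 6.68 in replicate 2. Pmepa1, a target and inhibitor of transforming growth factor beta signalling, had 147 and 203 CPM in the day 7 libraries, against 0.788 and 0.677 CPM in the sham libraries. Pmepa1 was even within each group and rose with a log2 fold change of 7.91 ± 0.89 (edgeR adjusted p = 0.00113), 7.50 in replicate 1 and 8.18 in replicate 2. Gpnmb, Spp1, Igf1, Gas6, Dab2 and Pmepa1 kept the call in all 4 fits that each left out 1 library. Syngr1 lost the call without sham replicate 1 (edgeR adjusted p = 0.0598), and Syngr1 and Hpgds without sham replicate 2 (edgeR adjusted p 0.0525 to 0.0589).

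**Figure D3:**
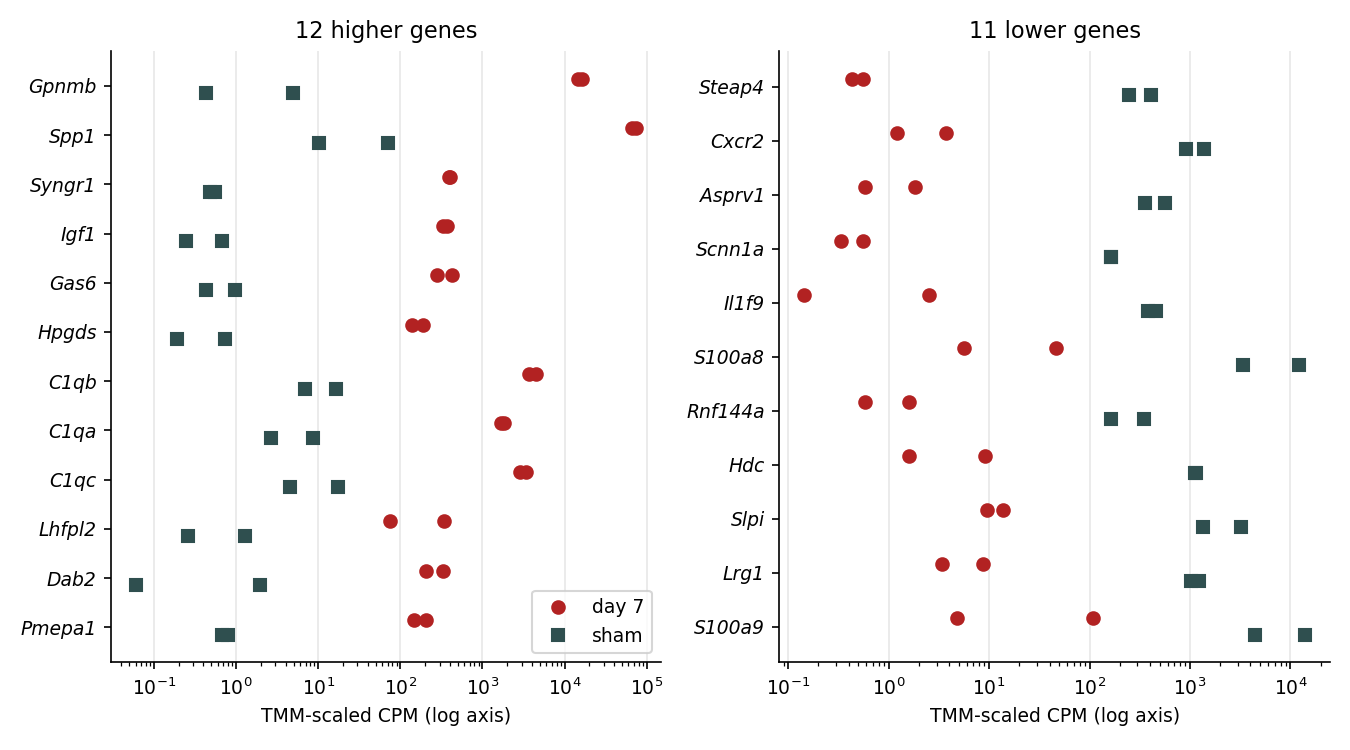
TMM-scaled CPM (log axis) of 12 higher genes (left) and 11 lower genes (right) among those with the largest log2 fold change, with 1 point per library, day 7 as circles and sham as squares. No gene overlaps between the groups, and for Gpnmb the day 7 libraries sit at 16108 and 14394 CPM against 0.424 and 4.92 CPM in sham.

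Some neutrophil markers lay at the other end. Among the lower genes with the largest change were Steap4, Cxcr2, Asprv1, Scnn1a, Il1f9, S100a8, Rnf144a, Hdc, Slpi, Lrg1 and S100a9. Cxcr2, the chemokine receptor that brings neutrophils out of the marrow, had 1.21 and 3.69 CPM in the day 7 libraries, against 1375 and 914 CPM in the sham libraries. Both sham libraries stood high, and Cxcr2 fell with a log2 fold change of -8.85 ± 1.79 (edgeR adjusted p = 0.0137), -10.12 in replicate 1 and -7.94 in replicate 2. S100a8, a subunit of calprotectin and a main cytosolic protein of neutrophils, had 5.57 and 46.8 CPM in the day 7 libraries, against 3397 and 12210.2 CPM in the sham libraries. Each group was spread out for S100a8 and still did not overlap the other, with a log2 fold change of -8.22 ± 2.08 (edgeR adjusted p = 0.0295), -9.25 in replicate 1 and -8.03 in replicate 2. Scnn1a, a subunit of the epithelial sodium channel, had 0.339 and 0.555 CPM in the day 7 libraries, against 165 and 164 CPM in the sham libraries. Its libraries were close within each group, and Scnn1a fell with a log2 fold change of -8.47 ± 1.07 (edgeR adjusted p = 0.00164), -8.82 in replicate 1 and -8.14 in replicate 2. These genes moved with the neutrophil marker sums, of which Cxcr2, S100a8 and S100a9 are members, and the part of neutrophil RNA in the result was not tested. Scnn1a kept the call in all 4 fits that each left out 1 library. Cxcr2 and S100a8 lost the call without day 7 replicate 1, day 7 replicate 2 and sham replicate 1 (edgeR adjusted p 0.0558 to 0.155), and S100a8 without sham replicate 2 (edgeR adjusted p = 0.094).

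Genes of homeostatic microglia were mostly higher at day 7 than in sham. Of 30 genes 17 rose (56.7%) and 2 fell (6.67%, near the 5.63% of all genes tested), with 11 not called. The median log2 fold change was 3.15, against 0.06 over all genes tested. It was 2.45 in replicate 1 and 3.80 in replicate 2. Fcrls, an Fc receptor-like gene used as a microglial marker, had 1116 and 1657 CPM in the day 7 libraries, against 10.4 and 4.03 CPM in the sham libraries. The groups did not overlap, and Fcrls rose with a log2 fold change of 7.60 ± 1.10 (edgeR adjusted p = 0.00286), 6.75 in replicate 1 and 8.68 in replicate 2. Mertk, the receptor tyrosine kinase through which microglia engulf dying cells, had 174 and 138 CPM in the day 7 libraries, against 1.82 and 0.903 CPM in the sham libraries. Mertk stood above sham in both day 7 libraries with a log2 fold change of 6.87 ± 0.88 (edgeR adjusted p = 0.00178), 6.56 in replicate 1 and 7.21 in replicate 2. Olfml3, an olfactomedin-like secreted protein gene, had 353 and 392 CPM in the day 7 libraries, against 6.06 and 1.21 CPM in the sham libraries. The sham replicates differed from each other, and Olfml3 rose with a log2 fold change of 6.70 ± 1.14 (edgeR adjusted p = 0.0055), 5.86 in replicate 1 and 8.31 in replicate 2. Tmem119, a microglial membrane protein, had 346 and 213 CPM in the day 7 libraries, against 16.9 and 2.48 CPM in the sham libraries. It was high in both day 7 libraries, and Tmem119 rose with a log2 fold change of 4.86 ± 1.08 (edgeR adjusted p = 0.0159), 4.35 in replicate 1 and 6.41 in replicate 2. Sall1, a transcription factor that keeps microglial identity, had 3.15 and 4.57 CPM in the day 7 libraries, against 0.424 and 0.214 CPM in the sham libraries. Sall1 was low in all 4 libraries and rose with a log2 fold change of 3.68 ± 0.93 (edgeR adjusted p = 0.0259), 2.82 in replicate 1 and 4.27 in replicate 2.

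Other homeostatic genes did not pass or went the other way. P2ry12, the purinergic receptor that steers microglial processes to injury, had 90.9 and 146 CPM in the day 7 libraries, against 47.5 and 17.6 CPM in the sham libraries. Its groups did not overlap and it was not called (log2 fold change 1.86 ± 0.75, edgeR adjusted p = 0.124). Cx3cr1, the receptor for the neuronal chemokine fractalkine, had 686 and 359.7 CPM in the day 7 libraries, against 392 and 149 CPM in the sham libraries. The lower day 7 library lay below the higher sham library, and Cx3cr1 was not called (log2 fold change 0.95 ± 0.77, edgeR adjusted p = 0.448). Csf1r, the receptor through which microglia survive, had 1583 and 1685 CPM in the day 7 libraries, against 1687 and 1235 CPM in the sham libraries. Day 7 and sham levels of Csf1r overlapped (log2 fold change 0.16 ± 0.76, edgeR adjusted p = 0.918). Selplg, the P-selectin ligand, which blood leukocytes also carry, fell to 481 and 331 CPM at day 7, against 2561 and 1489 CPM in sham (log2 fold change -2.32 ± 0.56, edgeR adjusted p = 0.0223). Entpd1, the ectonucleotidase CD39, fell to 102 and 117 CPM at day 7, against 323 and 259 CPM in sham (log2 fold change -1.41 ± 0.40, edgeR adjusted p = 0.038). Fcrls, Mertk and Olfml3 kept the call in all 4 fits that each left out 1 library. Tmem119, Sall1, Selplg and Entpd1 lost the call without day 7 replicate 1 and sham replicate 2 (edgeR adjusted p 0.0508 to 0.2), and Sall1, Selplg and Entpd1 without day 7 replicate 2 and sham replicate 1 (edgeR adjusted p 0.0978 to 0.188). Over the 30 genes the number called higher was 8, 7, 8 and 5 without day 7 replicates 1 and 2 and sham replicates 1 and 2, in that order, and none was called lower.

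The disease-associated microglia program was also higher. Of 34 genes 14 rose (41.2%) and 2 fell (5.88%), against 7.00% and 5.63% of all genes tested. Both day 7 libraries were above both sham libraries in 26 of the 34, against 32.1% of all genes tested. The median log2 fold change was 2.50, with 2.65 in replicate 1 and 2.36 in replicate 2. Beside Gpnmb, Spp1 and Igf1, Trem2, the lipid-sensing receptor on which the program depends, had 929 and 1673 CPM in the day 7 libraries, against 17.2 and 27.95 CPM in the sham libraries. Both day 7 libraries exceeded sham, and Trem2 rose with a log2 fold change of 5.85 ± 1.20 (edgeR adjusted p = 0.0116), 5.76 in replicate 1 and 5.90 in replicate 2. Apoe, the main lipid carrier of the brain, had 30267 and 59694 CPM in the day 7 libraries, against 1550.0 and 1836 CPM in the sham libraries. The day 7 libraries differed from each other in Apoe and both were above sham, with a log2 fold change of 4.73 ± 1.26 (edgeR adjusted p = 0.0314), 4.29 in replicate 1 and 5.02 in replicate 2. Lpl, lipoprotein lipase, had 847 and 1115 CPM in the day 7 libraries, against 104 and 126 CPM in the sham libraries. Lpl was even within each group and rose with a log2 fold change of 3.09 ± 0.72 (edgeR adjusted p = 0.0189), 3.03 in replicate 1 and 3.15 in replicate 2. Baiap2l2 had no count in sham and 844 counts at day 7, which makes it at least 200.1-fold higher against a floor of 3 counts over the group (edgeR adjusted p = 0.0167). It stayed low, at 1.26 and 6.77 CPM at day 7, against 0 and 0 CPM in sham.

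Members of the program that moved the other way were the chemokine gene Ccl6 and Cd52, a surface glycoprotein of leukocytes. These were 5.88% of the list, near the 5.63% called lower over all genes tested. Ccl6 had 85.9 and 91.9 CPM in the day 7 libraries, against 3435 and 6485 CPM in the sham libraries. The sham libraries were both high, and Ccl6 fell with a log2 fold change of -5.80 ± 0.87 (edgeR adjusted p = 0.00327), -5.32 in replicate 1 and -6.14 in replicate 2. Cd52 fell to 79.7 and 159 CPM at day 7, against 693 and 1769 CPM in sham (log2 fold change -3.36 ± 0.76, edgeR adjusted p = 0.0173). Tyrobp, the signalling partner of Trem2, had 529 and 1342 CPM in the day 7 libraries, against 1293 and 4403 CPM in the sham libraries. Day 7 replicate 2 and sham replicate 1 were alike in Tyrobp, and it was not called (log2 fold change -1.61 ± 0.79, edgeR adjusted p = 0.202). Ccl6 kept the call in all 4 fits that each left out 1 library. Apoe, Lpl and Cd52 lost the call without day 7 replicate 1 (edgeR adjusted p 0.0649 to 0.134), and Apoe, Lpl, Baiap2l2 and Cd52 without day 7 replicate 2 (edgeR adjusted p 0.0691 to 0.121). Trem2, Apoe, Lpl and Baiap2l2 lost the call without sham replicate 1 (edgeR adjusted p 0.0722 to 0.167), and Trem2, Apoe, Lpl, Baiap2l2 and Cd52 without sham replicate 2 (edgeR adjusted p 0.071 to 0.141). The list held 11, 7, 5 and 3 genes called higher without day 7 replicates 1 and 2 and sham replicates 1 and 2, in that order.

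Of 47 genes of lysosomal hydrolases and membrane proteins 20 rose and 1 fell, with 26 not called, 39 had both day 7 libraries above both sham libraries, and the median log2 fold change was 1.95, with 1.96 in replicate 1 and 1.87 in replicate 2. Lgmn, the asparagine endopeptidase legumain, had 1535 and 2322 CPM in the day 7 libraries, against 86.3 and 71.8 CPM in the sham libraries. The groups were far apart, and Lgmn rose with a log2 fold change of 4.61 ± 0.82 (edgeR adjusted p = 0.00675), 4.15 in replicate 1 and 5.02 in replicate 2. Ctsd, the aspartic protease cathepsin D, had 37576 and 54922 CPM in the day 7 libraries, against 1906 and 2038 CPM in the sham libraries. Ctsd was high in both day 7 libraries, with a log2 fold change of 4.55 ± 0.94 (edgeR adjusted p = 0.0122), 4.30 in replicate 1 and 4.75 in replicate 2. Naglu, which degrades heparan sulfate, had 483 and 353 CPM in the day 7 libraries, against 26.6 and 23.6 CPM in the sham libraries. Replicates of each group were alike for Naglu, with a log2 fold change of 4.06 ± 0.73 (edgeR adjusted p = 0.00715), 4.18 in replicate 1 and 3.90 in replicate 2. Ctsl, the cysteine protease cathepsin L, had 949.8 and 1305 CPM in the day 7 libraries, against 51.2 and 84.5 CPM in the sham libraries. Ctsl rose with a log2 fold change of 4.05 ± 0.83 (edgeR adjusted p = 0.0113), 4.21 in replicate 1 and 3.95 in replicate 2. Exons of Ctsd and Ctsl overlap those of another gene over 31.5% and 28.2% of their length, and reads of overlapping genes cannot be told apart here. Among the members not called, Cd68 had 2475 and 4035 CPM in the day 7 libraries, against 443 and 957 CPM in the sham libraries (log2 fold change 2.22 ± 0.77, edgeR adjusted p = 0.0777) and Lamp1 had 3249.6 and 4210.0 CPM in the day 7 libraries, against 962 and 970.0 CPM in the sham libraries (log2 fold change 1.95 ± 0.61, edgeR adjusted p = 0.0574).

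Ctse, cathepsin E, was the member that fell, to 9.35 and 13.7 CPM at day 7, against 40.9 and 39.2 CPM in sham (log2 fold change -1.80 ± 0.46, edgeR adjusted p = 0.0272). The vacuolar proton pump that acidifies lysosomes changed less as a list, with 3 of 18 genes higher, none lower and a median log2 fold change of 0.29. The 3 genes were 16.7% of the list, against 7.00% of all genes tested. Atp6v0d2, a pump subunit of macrophages and osteoclasts, had 176 and 168 CPM in the day 7 libraries, against 0 and 0.0713 CPM in the sham libraries. It had 6 counts in sham and 23886 at day 7, and Atp6v0d2 rose with a log2 fold change of 11.64 ± 1.90 (edgeR adjusted p = 0.00561), 12.79 in replicate 1 and 10.77 in replicate 2. Tcirg1, another membrane subunit of the pump, had 337 and 335 CPM in the day 7 libraries, against 103 and 106 CPM in the sham libraries. The replicates were nearly equal, and Tcirg1 rose with a log2 fold change of 1.69 ± 0.49 (edgeR adjusted p = 0.0417), 1.72 in replicate 1 and 1.66 in replicate 2. Atp6v1c1, a subunit of the cytosolic part, rose to 374 and 466 CPM at day 7, against 65.5 and 148 CPM in sham (log2 fold change 1.98 ± 0.59, edgeR adjusted p = 0.047). Atp6v0d2 kept the call in all 4 fits that each left out 1 library. Ctse, Tcirg1 and Atp6v1c1 lost the call without day 7 replicate 1 (edgeR adjusted p 0.125 to 0.177), and Ctsd, Ctsl, Ctse, Tcirg1 and Atp6v1c1 without day 7 replicate 2 (edgeR adjusted p 0.0512 to 0.175). Lgmn, Ctsd, Naglu, Ctsl, Ctse, Tcirg1 and Atp6v1c1 lost the call without sham replicate 1 and sham replicate 2 (edgeR adjusted p 0.0522 to 0.235). Calls of higher lysosomal hydrolase and membrane genes numbered 8, 8, 0 and 1 without day 7 replicates 1 and 2 and sham replicates 1 and 2, in that order.

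Transcription factors of the TFEB family bind the motif TCANGTGA in promoters of lysosomal genes. The motif was searched on both strands in RefSeq windows of 250 bases before to 50 bases after each start (GRCm38.p6), where it contains the shorter E-box CANNTG. It was found in 9 of 37 lysosomal genes with a window (24.3%) and in 4 of 12 pump genes (33.3%), against 4.72% of the 11034 genes tested that have a window. Tfeb itself had 98.5 and 76.1 CPM in the day 7 libraries, against 246 and 188 CPM in the sham libraries. Both day 7 libraries were below sham, and Tfeb fell with a log2 fold change of -1.31 ± 0.39 (edgeR adjusted p = 0.0448), -1.32 in replicate 1 and -1.31 in replicate 2. Stretches of 3 called genes with a match before the start are shown, because they belong to a list that moved together, with the motif in capitals, on the gene's strand, beginning at -99, -211 and -195 of the start site. Gla has 3 matches before its start, and only the nearest to the start is in capitals, while another stands in small letters in the stretch. They lie at chr7:142387889-142387956 (minus strand) (cathepsin D), chr11:102430266-102430333 (plus strand) (progranulin, a lysosomal growth factor) and chrX:134601163-134601230 (minus strand) (alpha-galactosidase A). A match is a description of the sequence and not a bound site. Tfeb lost the call without day 7 replicate 1, day 7 replicate 2, sham replicate 1 and sham replicate 2 (edgeR adjusted p 0.0881 to 0.24).
Ctsd: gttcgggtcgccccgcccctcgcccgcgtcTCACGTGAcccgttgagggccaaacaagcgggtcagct
Grn: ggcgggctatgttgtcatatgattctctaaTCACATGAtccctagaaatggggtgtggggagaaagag
Gla: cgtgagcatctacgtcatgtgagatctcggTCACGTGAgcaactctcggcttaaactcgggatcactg

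Receptors and bridging proteins of phagocytosis rose with them. Of 28 genes 11 rose and 1 fell, with a median log2 fold change of 2.001, 1.96 in replicate 1 and 1.61 in replicate 2. Stab1, a scavenger receptor, had 742 and 496 CPM in the day 7 libraries, against 7.15 and 6.27 CPM in the sham libraries. Replicates were alike in sham, and Stab1 rose with a log2 fold change of 6.53 ± 0.75 (edgeR adjusted p = 0.00127), 6.69 in replicate 1 and 6.30 in replicate 2. Stab2, its relative, had no count in sham and 376 counts at day 7, which makes it at least 89.2-fold higher at day 7 (adjusted p = 0.0199 in edgeR), at 2.91 and 2.62 CPM at day 7, against 0 and 0 CPM in sham. Cd36, a receptor for oxidised lipid and dying cells, had 808 and 467 CPM in the day 7 libraries, against 85.8 and 143 CPM in the sham libraries. Groups were separate for Cd36, with a log2 fold change of 2.48 ± 0.58 (edgeR adjusted p = 0.0191), 3.23 in replicate 1 and 1.71 in replicate 2. Axl, the relative of Mertk, had 726 and 526 CPM at day 7, against 37.6 and 22.2 CPM in sham and rose (log2 fold change 4.39 ± 0.77, edgeR adjusted p = 0.00613). Mfge8, the milk fat globule protein that bridges dying cells to integrins, had 85.7 and 81.1 CPM at day 7, against 12.6 and 15.7 CPM in sham and rose (log2 fold change 2.56 ± 0.42, edgeR adjusted p = 0.00484). Itgb3, the integrin beta 3 subunit, also found on platelets, fell to 2.37 and 1.32 CPM at day 7, against 24.7 and 7.26 CPM in sham (log2 fold change -3.12 ± 0.94, edgeR adjusted p = 0.0495) and moved with the platelet marker sums. Stab1 and Mfge8 kept the call in all 4 fits that each left out 1 library. Stab2, Cd36 and Itgb3 lost the call without day 7 replicate 1 and sham replicate 1 (edgeR adjusted p 0.0662 to 0.327), and Stab2 and Itgb3 without day 7 replicate 2 (edgeR adjusted p 0.0593 to 0.247). Axl, Stab2, Cd36 and Itgb3 lost the call without sham replicate 2 (edgeR adjusted p 0.0589 to 0.125). The list held 8, 10, 7 and 6 higher calls without day 7 replicates 1 and 2 and sham replicates 1 and 2, in that order.

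Receptors for antibody and for microbial products were not higher as a list. Of 18 Fc gamma and Toll-like receptor genes 2 rose and 3 fell, with a median log2 fold change of -0.35. These were 11.1% and 16.7% of the list, against 7.00% and 5.63% of all genes tested. Tlr3, the endosomal sensor of double-stranded RNA, had 12.7 and 11.1 CPM in the day 7 libraries, against 1.58 and 1.27 CPM in the sham libraries. Tlr3 rose with a log2 fold change of 3.07 ± 0.62 (edgeR adjusted p = 0.0108), 2.99 in replicate 1 and 3.10 in replicate 2. Fcgr1, the high-affinity IgG receptor, rose to 159 and 179 CPM at day 7, against 40.4 and 65.2 CPM in sham (log2 fold change 1.68 ± 0.49, edgeR adjusted p = 0.0421). Myd88, the adaptor shared by most Toll-like receptors, had 87.2 and 72.2 CPM in the day 7 libraries, against 489.5 and 459 CPM in the sham libraries. Both sham libraries were higher, and Myd88 fell with a log2 fold change of -2.57 ± 0.51 (edgeR adjusted p = 0.0102), -2.49 in replicate 1 and -2.67 in replicate 2. Tlr6 fell to 13.4 and 8.38 CPM at day 7, against 62.6 and 44.9 CPM in sham (log2 fold change -2.31 ± 0.54, edgeR adjusted p = 0.0191), and Fcgr4, an activating IgG receptor also carried by neutrophils, fell to 38.3 and 38.3 CPM at day 7, against 125 and 186 CPM in sham (log2 fold change -2.02 ± 0.45, edgeR adjusted p = 0.0166). Tlr2 and Tlr4 were not called, Tlr2 at 675 and 401 CPM at day 7, against 469.9 and 293 CPM in sham (log2 fold change 0.50 ± 0.47, edgeR adjusted p = 0.527) and Tlr4 at 64.3 and 26.2 CPM at day 7, against 97.3 and 62.1 CPM in sham (log2 fold change -0.82 ± 0.54, edgeR adjusted p = 0.336). Tlr3, Fcgr1, Myd88, Tlr6 and Fcgr4 lost the call without day 7 replicate 1 (edgeR adjusted p 0.0572 to 0.13), and Fcgr1, Myd88, Tlr6 and Fcgr4 without day 7 replicate 2 (edgeR adjusted p 0.0851 to 0.161). Tlr3, Fcgr1, Myd88 and Tlr6 lost the call without sham replicate 1 (edgeR adjusted p 0.0536 to 0.213), and Tlr3, Fcgr1, Tlr6 and Fcgr4 without sham replicate 2 (edgeR adjusted p 0.0541 to 0.0928). Fc gamma and Toll-like receptor calls numbered 0, 1, 0 and 0 higher and 0, 0, 1 and 1 lower without day 7 replicates 1 and 2 and sham replicates 1 and 2, in that order.

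Lipid uptake, storage and export genes were higher and cholesterol synthesis genes were not. Of 33 genes of lipid transport and storage 10 rose and 1 fell, with a median log2 fold change of 1.28, 1.53 in replicate 1 and 1.37 in replicate 2. Abca1, which exports cholesterol onto apolipoproteins, had 329.6 and 172 CPM in the day 7 libraries, against 11.5 and 4.12 CPM in the sham libraries. No day 7 library came near sham, and Abca1 rose with a log2 fold change of 5.01 ± 0.64 (edgeR adjusted p = 0.00178), 4.84 in replicate 1 and 5.37 in replicate 2. Ch25h, which makes 25-hydroxycholesterol, had 7.85 and 10.7 CPM in the day 7 libraries, against 0.0606 and 0.0713 CPM in the sham libraries. Sham held 7 counts in all, and Ch25h rose with a log2 fold change of 7.05 ± 0.92 (edgeR adjusted p = 0.00184), 6.52 in replicate 1 and 6.80 in replicate 2. Plin2, which coats lipid droplets, had 2110.1 and 1456 CPM in the day 7 libraries, against 156 and 204 CPM in the sham libraries. Plin2 was higher in both day 7 libraries, with a log2 fold change of 3.31 ± 0.53 (edgeR adjusted p = 0.00425), 3.76 in replicate 1 and 2.83 in replicate 2. Nceh1, which hydrolyses stored cholesterol esters, rose to 426 and 192 CPM at day 7, against 43.2 and 24.3 CPM in sham (log2 fold change 3.20 ± 0.76, edgeR adjusted p = 0.0201). Nr1h3, the liver X receptor alpha that switches on Abca1 and Apoe, rose to 36.04 and 26.5 CPM at day 7, against 4.43 and 7.09 CPM in sham (log2 fold change 2.43 ± 0.65, edgeR adjusted p = 0.0316). Dgat1, the last enzyme of triglyceride synthesis, fell to 24.3 and 47.5 CPM at day 7, against 177 and 191 CPM in sham (log2 fold change -2.36 ± 0.65, edgeR adjusted p = 0.0361). In the cholesterol synthesis list the median log2 fold change was -0.77, -0.84 in replicate 1 and -0.80 in replicate 2. None of its 22 genes rose and 1 fell (4.55%, against 5.63% of all genes tested). That gene was Sc5d, a late enzyme of the pathway, at 15.1 and 11.4 CPM at day 7, against 104 and 96.03 CPM in sham (log2 fold change -2.92 ± 0.58, edgeR adjusted p = 0.00994). Abca1, Ch25h and Plin2 kept the call in all 4 fits that each left out 1 library. Nceh1, Nr1h3, Dgat1 and Sc5d lost the call without day 7 replicate 1 and sham replicate 1 (edgeR adjusted p 0.0502 to 0.208), and Nr1h3, Dgat1 and Sc5d without day 7 replicate 2 (edgeR adjusted p 0.0826 to 0.0947). Nceh1, Nr1h3 and Dgat1 lost the call without sham replicate 2 (edgeR adjusted p 0.0961 to 0.124). The lipid list held 3, 5, 3 and 3 higher calls without day 7 replicates 1 and 2 and sham replicates 1 and 2, in that order.

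Cell division genes showed the largest median of the 26 lists. Of 58 genes of G2 and mitosis 33 rose and none fell, 55 had both day 7 libraries above both sham libraries, and the median log2 fold change was 4.59, with 4.98 in replicate 1 and 4.61 in replicate 2. Plk1, a kinase of mitotic entry and spindle assembly, had 37.9 and 26.3 CPM in the day 7 libraries, against 0.0606 and 0.119 CPM in the sham libraries. It had 3959 counts at day 7 and 11 in sham, and Plk1 rose with a log2 fold change of 8.30 ± 1.39 (edgeR adjusted p = 0.00508), 8.79 in replicate 1 and 7.52 in replicate 2. Kif2c, a kinesin that corrects chromosome attachment, had 22.9 and 32.1 CPM in the day 7 libraries, against 0.182 and 0.143 CPM in the sham libraries. Kif2c was even within each group and rose with a log2 fold change of 7.44 ± 1.14 (edgeR adjusted p = 0.00355), 6.79 in replicate 1 and 7.58 in replicate 2. Top2a, topoisomerase II alpha, had 66.6 and 51.6 CPM in the day 7 libraries, against 1.58 and 1.44 CPM in the sham libraries. All 4 values for Top2a kept to their group, with a log2 fold change of 5.30 ± 1.04 (edgeR adjusted p = 0.00953), 5.38 in replicate 1 and 5.14 in replicate 2. Ttk, a kinase of the spindle checkpoint, had 1417 counts at day 7 and none in sham, which makes it at least 336-fold higher at day 7 (adjusted p = 0.0217 in edgeR). Pbk, a mitotic kinase, rose to 23.2 and 21.1 CPM at day 7, against 0.0606 and 0.131 CPM in sham (log2 fold change 7.67 ± 2.12, edgeR adjusted p = 0.0397). Nek2, a centrosomal kinase, rose to 24.2 and 7.83 CPM at day 7, against 0 and 0.154 CPM in sham (log2 fold change 7.31 ± 2.17, edgeR adjusted p = 0.0482). Mki67, the gene of the proliferation antigen Ki-67, had 34.8 and 23.5 CPM in the day 7 libraries, against 10.8 and 4.72 CPM in the sham libraries. Its groups did not overlap, and Mki67 was not called (log2 fold change 1.92 ± 0.66, edgeR adjusted p = 0.0757).

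Genes of G1 and S phase moved in the same direction. Of 44 genes 24 rose and none fell, with a median log2 fold change of 2.32, 2.53 in replicate 1 and 2.35 in replicate 2. Uhrf1, which brings the maintenance DNA methyltransferase to replicated DNA, had 41.6 and 17.3 CPM in the day 7 libraries, against 0.485 and 0.523 CPM in the sham libraries. Day 7 replicate 1 was the highest library, and Uhrf1 rose with a log2 fold change of 5.86 ± 1.17 (edgeR adjusted p = 0.0102), 6.35 in replicate 1 and 4.98 in replicate 2. Rrm2, the small subunit of ribonucleotide reductase, had 62.7 and 52.3 CPM in the day 7 libraries, against 1.76 and 1.69 CPM in the sham libraries. Replicates were alike, and Rrm2 rose with a log2 fold change of 5.06 ± 1.11 (edgeR adjusted p = 0.0154), 5.14 in replicate 1 and 4.93 in replicate 2. Lig1, the ligase that joins Okazaki fragments, rose to 26.4 and 34.1 CPM at day 7, against 0.909 and 1.68 CPM in sham (log2 fold change 4.52 ± 0.75, edgeR adjusted p = 0.00492). Gins1, part of the replicative helicase, rose to 6.35 and 10.2 CPM at day 7, against 0.606 and 0.202 CPM in sham (log2 fold change 4.45 ± 0.86, edgeR adjusted p = 0.00862). Chaf1a, a histone chaperone of replication whose exons overlap those of another gene over 33.6% of their length, rose to 22.8 and 12.4 CPM at day 7, against 0.485 and 0.772 CPM in sham (log2 fold change 4.77 ± 0.86, edgeR adjusted p = 0.00694). Ccnd1, cyclin D1, rose to 66.5 and 26.1 CPM at day 7, against 4.91 and 1.74 CPM in sham (log2 fold change 3.82 ± 0.80, edgeR adjusted p = 0.0124). Kif2c kept the call in all 4 fits that each left out 1 library. Ttk, Pbk, Nek2, Uhrf1, Rrm2 and Ccnd1 lost the call without day 7 replicate 1 (edgeR adjusted p 0.0528 to 0.152), and Ttk, Pbk and Nek2 without day 7 replicate 2 (edgeR adjusted p 0.0693 to 0.101). Plk1, Ttk, Pbk, Nek2, Top2a, Uhrf1, Rrm2, Lig1 and Chaf1a lost the call without sham replicate 1 (edgeR adjusted p 0.05 to 0.22), and Plk1, Ttk, Pbk, Nek2, Top2a, Uhrf1, Rrm2, Gins1, Chaf1a and Ccnd1 without sham replicate 2 (edgeR adjusted p 0.0501 to 0.171). For G2 and mitosis the higher calls numbered 19, 18, 9 and 9 without day 7 replicates 1 and 2 and sham replicates 1 and 2, in that order, and for G1 and S phase 7, 14, 6 and 6.

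Many genes of G2 and mitosis carry the motif TTTGAA, known as the cell cycle genes homology region, which the DREAM complex and MuvB proteins bind, and CCAAT boxes near it. In the RefSeq windows TTTGAA on either strand was found in 35 of 49 genes of the G2 and mitosis list (71.4%), against 14.6% of the 11034 genes tested with a window. CCAAT was found in 36 of the 49 (73.5%) against 42.7%, and both motifs in 30 (61.2%) against 5.95%. In G1 and S phase genes TTTGAA was found in 6 of 35 (17.1%) and CCAAT in 21 (60%). Neither motif contains the other, and their matches can share at most 1 base. Of the 4 stretches below, chosen among called genes by size of change, the motif lies from -103, -167, -15 and -14 of the start of Kif2c, Ccnb2, Cdk1 and Ccnf. Cdk1 and Ccnf have 2 matches each before the start, of which the nearest is shown. They are shown because the list they belong to moved together, with the motif in capitals on the gene's strand, where Kif2c holds its reverse complement. They lie at chr4:117178840-117178905 (minus strand), chr9:70421686-70421751 (minus strand), chr10:69352913-69352957 (minus strand) and chr17:24251410-24251453 (minus strand). Cdk1, the mitotic cyclin-dependent kinase, had 34.5 and 36.5 CPM at day 7, against 0.243 and 0.618 CPM in sham, Ccnb2, one of its cyclins, had 49.5 and 92.5 CPM at day 7, against 0.424 and 0.701 CPM in sham, and Ccnf, cyclin F, had 26.4 and 17.1 CPM at day 7, against 0.485 and 0.143 CPM in sham. Cdk1 and Ccnb2 kept the call in all 4 fits that each left out 1 library. Ccnf lost the call without sham replicate 2 (edgeR adjusted p = 0.0517).
Kif2c: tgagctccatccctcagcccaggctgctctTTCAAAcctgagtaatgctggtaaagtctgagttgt
Ccnb2: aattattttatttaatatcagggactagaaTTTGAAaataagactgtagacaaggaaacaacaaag
Cdk1: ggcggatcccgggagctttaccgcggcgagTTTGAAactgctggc
Ccnf: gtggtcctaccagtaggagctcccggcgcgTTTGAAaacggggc

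Inflammatory cytokine genes split. Of 33 cytokine and NF-kB target genes 4 rose and 5 fell, with a median log2 fold change of -0.63. Their shares were 12.1% and 15.2%, against 7.00% and 5.63% of all genes tested. Il1b, the gene of interleukin-1 beta, had 355 and 433 CPM in the day 7 libraries, against 5593 and 7789.7 CPM in the sham libraries. Both sham libraries were high, and Il1b fell with a log2 fold change of -4.09 ± 0.67 (edgeR adjusted p = 0.00484), -3.98 in replicate 1 and -4.17 in replicate 2. Il1a, the gene of interleukin-1 alpha, had 54.02 and 72.3 CPM in the day 7 libraries, against 1.21 and 1.07 CPM in the sham libraries. Il1a went the other way, with both day 7 libraries above sham, with a log2 fold change of 5.80 ± 0.89 (edgeR adjusted p = 0.00362), 5.45 in replicate 1 and 6.05 in replicate 2. Tnf, tumour necrosis factor, had 207 and 161 CPM in the day 7 libraries, against 33.9 and 21.9 CPM in the sham libraries. Tnf rose with a log2 fold change of 2.72 ± 0.61 (edgeR adjusted p = 0.0167), 2.61 in replicate 1 and 2.87 in replicate 2. Tnfsf9, the ligand of the T cell co-stimulator 4-1BB, had 54.8 and 74.1 CPM in the day 7 libraries, against 2.18 and 2.41 CPM in the sham libraries. Replicates were close, and Tnfsf9 rose with a log2 fold change of 4.81 ± 0.46 (edgeR adjusted p = 0.000654), 4.63 in replicate 1 and 4.93 in replicate 2. Il12b, the p40 subunit of interleukin-12 and interleukin-23, had 375 counts at day 7 and 2 in sham, 2.03 and 2.76 CPM at day 7, against 0 and 0.0238 CPM in sham, and was called higher (edgeR adjusted p = 0.00205). Nlrp3, the inflammasome sensor, fell to 18.1 and 10.2 CPM at day 7, against 174 and 85.7 CPM in sham (log2 fold change -3.20 ± 0.73, edgeR adjusted p = 0.0174). Tnfaip2, an NF-kB target, fell to 159 and 140.5 CPM at day 7, against 1378 and 851 CPM in sham (log2 fold change -2.89 ± 0.68, edgeR adjusted p = 0.0191). Il27 and Il23a, cytokine genes at low level, fell to 0.339 and 0.430 CPM at day 7, against 3.33 and 2.75 CPM in sham and to 0.291 and 0.257 CPM at day 7, against 1.64 and 1.62 CPM in sham. Neutrophils transcribe Il1b and Nlrp3 as well, and both moved with the neutrophil marker sums. Il1a, Tnfsf9 and Il12b kept the call in all 4 fits that each left out 1 library. Il1b, Tnf, Nlrp3, Tnfaip2, Il27 and Il23a lost the call without day 7 replicate 1 (edgeR adjusted p 0.059 to 0.176), and Tnf, Nlrp3, Tnfaip2, Il27 and Il23a without day 7 replicate 2 and sham replicate 1 (edgeR adjusted p 0.0541 to 0.161). Tnf, Il27 and Il23a lost the call without sham replicate 2 (edgeR adjusted p 0.0841 to 0.108). Cytokine and NF-kB target calls numbered 3, 3, 3 and 3 higher and 0, 1, 1 and 3 lower without day 7 replicates 1 and 2 and sham replicates 1 and 2, in that order.

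Of 25 chemokine genes 8 rose and 4 fell, with a median log2 fold change of 1.79, 2.06 in replicate 1 and 1.76 in replicate 2. Cxcl14 had 29.1 and 37.8 CPM in the day 7 libraries, against 0 and 0.511 CPM in the sham libraries. It was near 0 in sham, and Cxcl14 rose with a log2 fold change of 6.75 ± 1.08 (edgeR adjusted p = 0.00419), 10.19 in replicate 1 and 6.14 in replicate 2. Ccl7, which attracts monocytes through Ccr2, had 48.2 and 35.7 CPM in the day 7 libraries, against 0.182 and 0.808 CPM in the sham libraries. Ccl7 rose with a log2 fold change of 6.28 ± 0.92 (edgeR adjusted p = 0.00303), 7.87 in replicate 1 and 5.42 in replicate 2. Ccl12, another Ccr2 ligand in mice, rose to 4.70 and 26.6 CPM at day 7, against 0.121 and 0.321 CPM in sham (log2 fold change 5.99 ± 1.16, edgeR adjusted p = 0.00898). Ccl8 had 406 counts at day 7 and none in sham, at least 96.3-fold higher (edgeR adjusted p = 0.0247). Ccl22, a Ccr4 ligand, had 1575 counts at day 7 and 1 in sham, 15.3 and 10.4 CPM at day 7, against 0 and 0.0119 CPM in sham, and was called higher (edgeR adjusted p = 0.00777). Cxcl2, which attracts neutrophils through Cxcr2, had 123 and 199 CPM in the day 7 libraries, against 1274 and 1568 CPM in the sham libraries. Both sham libraries exceeded day 7, and Cxcl2 fell with a log2 fold change of -3.14 ± 0.91 (edgeR adjusted p = 0.0432), -3.37 in replicate 1 and -2.98 in replicate 2. Ppbp, the platelet chemokine, had 0.145 and 0.563 CPM in the day 7 libraries, against 26.7 and 27.2 CPM in the sham libraries. Ppbp fell with the platelet marker sums, of which it is a member, with a log2 fold change of -6.11 ± 1.48 (edgeR adjusted p = 0.024), -7.29 in replicate 1 and -5.53 in replicate 2. Ccl9 fell to 90.5 and 66.7 CPM at day 7, against 446 and 851 CPM in sham (log2 fold change -3.04 ± 0.90, edgeR adjusted p = 0.0457). Cxcl14 and Ccl7 kept the call in all 4 fits that each left out 1 library. Ccl8, Cxcl2, Ppbp and Ccl9 lost the call without day 7 replicate 1 (edgeR adjusted p 0.0582 to 0.221), and Ccl12, Ccl8, Cxcl2, Ppbp and Ccl9 without day 7 replicate 2 (edgeR adjusted p 0.0525 to 0.226). Ccl12, Ccl8, Ccl22, Cxcl2, Ppbp and Ccl9 lost the call without sham replicate 1 and sham replicate 2 (edgeR adjusted p 0.0609 to 0.163). Chemokine calls numbered 6, 5, 3 and 5 higher and 1, 1, 1 and 1 lower without day 7 replicates 1 and 2 and sham replicates 1 and 2, in that order.

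Chemokine and chemoattractant receptors had the lowest median of the 26 lists, -1.87, with -1.69 in replicate 1 and -2.23 in replicate 2. Of 19 genes 7 fell and 1 rose. Beside Cxcr2, the formyl peptide receptor gene Fpr1 had 2.52 and 3.82 CPM in the day 7 libraries, against 215 and 219.5 CPM in the sham libraries. Sham libraries were nearly equal, and Fpr1 fell with a log2 fold change of -6.09 ± 1.75 (edgeR adjusted p = 0.0489), -6.40 in replicate 1 and -5.84 in replicate 2. Fpr2 fell to 0.388 and 0.960 CPM at day 7, against 63.4 and 77.1 CPM in sham (log2 fold change -6.64 ± 1.63, edgeR adjusted p = 0.026), Cxcr1 to 0.242 and 0.132 CPM at day 7, against 15.9 and 12.7 CPM in sham (log2 fold change -6.31 ± 1.44, edgeR adjusted p = 0.0177) and Ccr3, the eotaxin receptor, to 0.872 and 0.265 CPM at day 7, against 54.1 and 33.9 CPM in sham (log2 fold change -6.35 ± 1.34, edgeR adjusted p = 0.0132). C5ar1, the receptor of the complement fragment C5a, had 327 and 182 CPM in the day 7 libraries, against 1753 and 1729 CPM in the sham libraries. C5ar1 fell with a log2 fold change of -2.78 ± 0.63 (edgeR adjusted p = 0.017), -2.42 in replicate 1 and -3.25 in replicate 2. Ccr2, the receptor of inflammatory monocytes, had 186 and 99.3 CPM in the day 7 libraries, against 959.6 and 565 CPM in the sham libraries. Its groups did not overlap and it was not called (log2 fold change -2.42 ± 1.15, edgeR adjusted p = 0.19). Cxcr1, Cxcr2, Fpr1 and Fpr2 are receptors of neutrophils, whose marker sums were lower at day 7 in the same libraries. Fpr1, Fpr2, Cxcr1, Ccr3 and C5ar1 lost the call without day 7 replicate 1, day 7 replicate 2 and sham replicate 1 (edgeR adjusted p 0.0546 to 0.23), and Fpr1, Fpr2, Cxcr1 and C5ar1 without sham replicate 2 (edgeR adjusted p 0.0555 to 0.11). Receptor calls numbered 0, 1, 1 and 0 higher and 0, 0, 0 and 2 lower without day 7 replicates 1 and 2 and sham replicates 1 and 2, in that order.

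Of 38 interferon response genes 10 fell and 1 rose, 24 had both day 7 libraries below both sham libraries, and the median log2 fold change was -1.18, with -1.46 in replicate 1 and -1.09 in replicate 2. Ifitm3, a membrane protein that blocks viral entry, had 63.5 and 199 CPM in the day 7 libraries, against 677 and 1648 CPM in the sham libraries. Ifitm3 fell with a log2 fold change of -3.15 ± 0.81 (edgeR adjusted p = 0.0272), -3.41 in replicate 1 and -3.05 in replicate 2. Gbp2, a guanylate-binding protein, had 11.05 and 32.5 CPM in the day 7 libraries, against 133 and 197 CPM in the sham libraries. Day 7 replicate 1 was the lowest library, and Gbp2 fell with a log2 fold change of -2.92 ± 0.75 (edgeR adjusted p = 0.0277), -3.59 in replicate 1 and -2.60 in replicate 2. Trim30a, a regulator of the innate response, had 58.1 and 70.4 CPM in the day 7 libraries, against 255 and 643 CPM in the sham libraries. The groups kept apart, and Trim30a fell with a log2 fold change of -2.81 ± 0.53 (edgeR adjusted p = 0.00803), -2.14 in replicate 1 and -3.19 in replicate 2. Rtp4 fell to 29.7 and 35.6 CPM at day 7, against 155 and 210.2 CPM in sham (log2 fold change -2.48 ± 0.61, edgeR adjusted p = 0.0231) and Isg20, an RNA exonuclease, to 6.73 and 18.01 CPM at day 7, against 62.02 and 125 CPM in sham (log2 fold change -2.91 ± 0.74, edgeR adjusted p = 0.0264). Ifnb1, the gene of interferon beta, was the member that rose, with 269 counts at day 7 and none in sham, at least 63.8-fold higher (edgeR adjusted p = 0.00611). Its level was low, at 0.920 and 2.07 CPM at day 7, against 0 and 0 CPM in sham. Irf7, the master regulator of type I interferon, had 93.9 and 192 CPM at day 7, against 319.9 and 367 CPM in sham and was not called (log2 fold change -1.26 ± 0.50, edgeR adjusted p = 0.117). Ifitm3, Gbp2, Trim30a, Rtp4 and Isg20 lost the call without day 7 replicate 1 and day 7 replicate 2 (edgeR adjusted p 0.0574 to 0.174), and Ifitm3, Gbp2, Rtp4 and Isg20 without sham replicate 1 (edgeR adjusted p 0.0528 to 0.0775). Ifitm3, Gbp2, Trim30a, Rtp4, Isg20 and Ifnb1 lost the call without sham replicate 2 (edgeR adjusted p 0.0582 to 0.13). Interferon response calls numbered 1, 1, 1 and 0 higher and 0, 0, 1 and 1 lower without day 7 replicates 1 and 2 and sham replicates 1 and 2, in that order.

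The motif searched here, GAAA repeated after a gap of any 2 bases, is the core of the interferon-stimulated response element bound by IRF and STAT proteins. On either strand it lay in 16 of 29 interferon response genes with a window (55.2%), against 3.94% of genes tested. Among the 9 called lower that have a window it lay in 4 (44.4%). The stretches of Gbp2, Trim30a and Rsad2 are shown as called members of the list with the motif, in capitals and here as its reverse complement, from -59, -36 and -120 of the start. They lie at chr3:142620574-142620643 (plus strand), chr7:104465194-104465259 (minus strand) and chr12:26456533-26456602 (minus strand). Rsad2, the antiviral enzyme viperin, had 49.8 and 43.02 CPM at day 7, against 239 and 183 CPM in sham (log2 fold change -2.19 ± 0.42, edgeR adjusted p = 0.00847). Rsad2 lost the call without day 7 replicate 1, day 7 replicate 2 and sham replicate 1 (edgeR adjusted p 0.0608 to 0.0737).
Gbp2: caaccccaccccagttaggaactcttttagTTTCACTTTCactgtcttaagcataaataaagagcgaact
Trim30a: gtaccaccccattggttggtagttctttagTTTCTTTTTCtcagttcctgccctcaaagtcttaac
Rsad2: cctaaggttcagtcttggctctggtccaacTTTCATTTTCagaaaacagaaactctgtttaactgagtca

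Of 13 genes of MHC class II and co-stimulation 1 rose and 1 fell by edgeR, a share near the 12.6% over all genes tested, while DESeq2 called 4 higher and 1 lower, with a median log2 fold change of 1.06. Cd74, the invariant chain, had 4949 and 7953 CPM in the day 7 libraries, against 2058 and 4120.4 CPM in the sham libraries. The groups did not overlap and it was not called (log2 fold change 1.06 ± 0.72, edgeR adjusted p = 0.351). H2-Oa, a subunit that restrains peptide loading and whose exons overlap another gene over 29.5% of their length, rose to 20.7 and 26.7 CPM at day 7, against 5.34 and 8.57 CPM in sham (log2 fold change 1.77 ± 0.50, edgeR adjusted p = 0.0406). Cd80, a co-stimulatory ligand, fell to 4.75 and 4.47 CPM at day 7, against 47.8 and 39.2 CPM in sham (log2 fold change -3.24 ± 0.60, edgeR adjusted p = 0.00752). H2-Oa and Cd80 lost the call without day 7 replicate 1 and day 7 replicate 2 (edgeR adjusted p 0.065 to 0.172), and H2-Oa without sham replicate 1 and sham replicate 2 (edgeR adjusted p 0.0928 to 0.211).

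Within the complement system the recognition molecule C1q rose while the central component C3 fell. Of 21 genes 7 rose and 3 fell, with a median log2 fold change of 1.84, 1.13 in replicate 1 and 1.73 in replicate 2. C1qa had 1704 and 1826 CPM in the day 7 libraries, against 8.61 and 2.66 CPM in the sham libraries. Its sister chain genes moved alike, C1qb with 3716 and 4535 CPM in the day 7 libraries, against 16.4 and 6.95 CPM in the sham libraries, and C1qc with 2850.3 and 3403 CPM in the day 7 libraries, against 17.3 and 4.59 CPM in the sham libraries. All 3 chain genes were separate between the groups, C1qa with a log2 fold change of 8.30 ± 1.31 (edgeR adjusted p = 0.00413), 7.63 in replicate 1 and 9.41 in replicate 2. C1qb rose with a log2 fold change of 8.47 ± 1.35 (edgeR adjusted p = 0.00414), 7.82 in replicate 1 and 9.34 in replicate 2, and C1qc rose with a log2 fold change of 8.16 ± 1.35 (edgeR adjusted p = 0.00492), 7.36 in replicate 1 and 9.53 in replicate 2. C3ar1, the receptor of the fragment C3a, had 671 and 290.5 CPM in the day 7 libraries, against 6.002 and 2.19 CPM in the sham libraries. C3ar1 rose with a log2 fold change of 6.89 ± 1.06 (edgeR adjusted p = 0.00363), 6.80 in replicate 1 and 7.04 in replicate 2. C2, a protease of the classical pathway, had 2.47 and 11.1 CPM at day 7, against 0.0606 and 0.0951 CPM in sham, but over 50% of its 50-base words also occur in Gm20547, so reads of these genes may be shared. C3 had 49.6 and 31.99 CPM in the day 7 libraries, against 400.3 and 288 CPM in the sham libraries. Both sham libraries were higher, and C3 fell with a log2 fold change of -3.08 ± 0.84 (edgeR adjusted p = 0.0339), -3.01 in replicate 1 and -3.17 in replicate 2. Cr2, the B cell receptor of C3d fragments, had no count at day 7 and 125 in sham, at least 58.6-fold lower (edgeR adjusted p = 0.00752), beside B cell marker sums that were lower too. C1qa, C1qb, C1qc and C3ar1 kept the call in all 4 fits that each left out 1 library. C3 lost the call without day 7 replicate 1 (edgeR adjusted p = 0.135), and C3 and Cr2 without day 7 replicate 2 (edgeR adjusted p 0.0721 to 0.192). C2 and C3 lost the call without sham replicate 1 and sham replicate 2 (edgeR adjusted p 0.0584 to 0.132). Complement calls numbered 5, 5, 4 and 5 higher and 1, 0, 1 and 1 lower without day 7 replicates 1 and 2 and sham replicates 1 and 2, in that order. The list's median was -0.36 without day 7 replicate 2.

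Of 31 genes of oxidative stress and iron 5 rose and 3 fell, with a median log2 fold change of -0.21 that was 0.35 without sham replicate 2. Gpx3, a secreted glutathione peroxidase, had 257 and 400.1 CPM in the day 7 libraries, against 11.6 and 11.7 CPM in the sham libraries. Sham libraries were nearly equal, and Gpx3 rose with a log2 fold change of 4.82 ± 1.04 (edgeR adjusted p = 0.0145), 4.47 in replicate 1 and 5.10 in replicate 2. Tfrc, the transferrin receptor that takes up iron, rose to 22.6 and 11.1 CPM at day 7, against 4.73 and 3.61 CPM in sham (log2 fold change 2.02 ± 0.47, edgeR adjusted p = 0.0185), and Slc11a2, which carries iron out of endosomes, to 35.7 and 36.6 CPM at day 7, against 8.37 and 12.5 CPM in sham (log2 fold change 1.79 ± 0.49, edgeR adjusted p = 0.0349). Slc40a1, the iron exporter ferroportin, had 21.9 and 26.6 CPM in the day 7 libraries, against 1098 and 968 CPM in the sham libraries. Both sham libraries were high, and Slc40a1 fell with a log2 fold change of -5.41 ± 0.72 (edgeR adjusted p = 0.00198), -5.64 in replicate 1 and -5.19 in replicate 2. Gsr, glutathione reductase, had 73.7 and 86.6 CPM in the day 7 libraries, against 3016 and 3575 CPM in the sham libraries. Gsr fell with a log2 fold change of -5.36 ± 0.87 (edgeR adjusted p = 0.00439), -5.35 in replicate 1 and -5.37 in replicate 2. Slc7a11, the cystine importer, fell to 7.46 and 6.000 CPM at day 7, against 114 and 64.8 CPM in sham (log2 fold change -3.73 ± 0.97, edgeR adjusted p = 0.0281). Gclc, of glutathione synthesis, rose to 82.3 and 93.97 CPM at day 7, against 21.4 and 20.95 CPM in sham (log2 fold change 2.06 ± 0.46, edgeR adjusted p = 0.0166) and Srxn1, sulfiredoxin, to 84.2 and 25.2 CPM at day 7, against 9.09 and 4.94 CPM in sham (log2 fold change 2.97 ± 0.87, edgeR adjusted p = 0.0447). The heme oxygenase gene Hmox1 had 233 and 147 CPM at day 7, against 57.1 and 88.2 CPM in sham and was not called (log2 fold change 1.39 ± 0.71, edgeR adjusted p = 0.22). Slc40a1 kept the call in all 4 fits that each left out 1 library. Tfrc, Slc11a2, Gsr, Slc7a11, Gclc and Srxn1 lost the call without day 7 replicate 1 (edgeR adjusted p 0.0512 to 0.26), and Gpx3, Slc11a2, Slc7a11, Gclc and Srxn1 without day 7 replicate 2 (edgeR adjusted p 0.0574 to 0.164). Gpx3, Tfrc, Slc11a2, Slc7a11, Gclc and Srxn1 lost the call without sham replicate 1 and sham replicate 2 (edgeR adjusted p 0.0623 to 0.206). Calls of the list numbered 1, 1, 0 and 0 higher and 1, 2, 2 and 2 lower without day 7 replicates 1 and 2 and sham replicates 1 and 2, in that order.

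Of 30 genes of glycolysis and hypoxia 8 fell and 1 rose, with a median log2 fold change of -0.17 that was 0.17 without sham replicate 2. Slc2a3, a glucose transporter of neurons and leukocytes, had 10.03 and 6.42 CPM in the day 7 libraries, against 1026 and 558 CPM in the sham libraries. Slc2a3 fell with a log2 fold change of -6.59 ± 1.55 (edgeR adjusted p = 0.0225), -6.67 in replicate 1 and -6.43 in replicate 2. Ndrg1, a hypoxia-induced gene, had 20.3 and 20.1 CPM in the day 7 libraries, against 189 and 166 CPM in the sham libraries. Replicates were close, and Ndrg1 fell with a log2 fold change of -3.13 ± 0.45 (edgeR adjusted p = 0.00281), -3.22 in replicate 1 and -3.04 in replicate 2. Slc16a3, the lactate exporter, fell to 81.05 and 44.4 CPM at day 7, against 822 and 397 CPM in sham (log2 fold change -3.28 ± 0.91, edgeR adjusted p = 0.0371), while Slc16a1, the other monocarboxylate carrier, rose to 36.1 and 11.7 CPM at day 7, against 2.55 and 1.76 CPM in sham (log2 fold change 3.48 ± 0.70, edgeR adjusted p = 0.0103). Egln3, an oxygen sensor, fell to 1.79 and 2.25 CPM at day 7, against 17.2 and 15.6 CPM in sham (log2 fold change -3.01 ± 0.62, edgeR adjusted p = 0.0119), and Ankrd37, whose exons overlap another gene over 26.2% of their length, to 0.581 and 0.803 CPM at day 7, against 6.67 and 11.2 CPM in sham (log2 fold change -3.68 ± 0.85, edgeR adjusted p = 0.0188). None of the 57 genes of oxidative phosphorylation was called by edgeR, while 3 had an unadjusted p under 0.05, 1 was called by DESeq2 and 0 by limma-voom. Their median log2 fold change was 0.21 in replicate 1, -0.59 in replicate 2 and -0.33 pooled, and it was 0.59 without sham replicate 2. Of 25 unfolded protein response genes 3 rose and 2 fell, 12% and 8% of the list, against 7.00% and 5.63% of all genes tested. The chaperone genes Pdia4 (log2 fold change 1.94 ± 0.39, edgeR adjusted p = 0.0102), Calr (log2 fold change 1.61 ± 0.46, edgeR adjusted p = 0.0412) and Canx (log2 fold change 1.48 ± 0.43, edgeR adjusted p = 0.0412) rose. The stress effectors fell, Ddit3, the pro-apoptotic factor CHOP, to 7.51 and 12.5 CPM at day 7, against 40.99 and 55.3 CPM in sham (log2 fold change -2.27 ± 0.55, edgeR adjusted p = 0.0225), and Chac1, which degrades glutathione, to 0.291 and 0.132 CPM at day 7, against 31.6 and 21.03 CPM in sham (log2 fold change -7.05 ± 1.19, edgeR adjusted p = 0.00524). Ndrg1 kept the call in all 4 fits that each left out 1 library. Slc2a3, Slc16a3, Slc16a1, Egln3, Ankrd37, Pdia4, Calr, Canx and Ddit3 lost the call without day 7 replicate 1 and sham replicate 1 (edgeR adjusted p 0.0508 to 0.233), and Slc2a3, Slc16a3, Egln3, Ankrd37, Calr, Canx, Ddit3 and Chac1 without day 7 replicate 2 (edgeR adjusted p 0.0556 to 0.209). Slc2a3, Slc16a3, Slc16a1, Ankrd37, Pdia4, Calr, Canx and Ddit3 lost the call without sham replicate 2 (edgeR adjusted p 0.0577 to 0.183). Glycolysis and hypoxia calls numbered 0, 1, 0 and 0 higher and 1, 1, 1 and 3 lower without day 7 replicates 1 and 2 and sham replicates 1 and 2, in that order.

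Matrix and protease genes gave 7 higher and 3 lower of 33, with a median log2 fold change of 1.39. Mmp14, a membrane-bound metalloprotease that cleaves collagen and activates other proteases, had 352 and 391 CPM in the day 7 libraries, against 0.667 and 2.95 CPM in the sham libraries. Mmp14 stood apart in both replicates, with a log2 fold change of 7.64 ± 0.71 (edgeR adjusted p = 0.000653), 8.99 in replicate 1 and 7.04 in replicate 2. Mmp12, macrophage elastase, had 27.3 and 65.2 CPM in the day 7 libraries, against 0.182 and 0.463 CPM in the sham libraries. Mmp12 rose with a log2 fold change of 7.06 ± 0.86 (edgeR adjusted p = 0.00153), 7.04 in replicate 1 and 7.06 in replicate 2. Sparc, a matrix glycoprotein that microglia secrete, rose to 160.4 and 649.8 CPM at day 7, against 10.5 and 17.8 CPM in sham (log2 fold change 4.84 ± 1.03, edgeR adjusted p = 0.0136), and Plau, urokinase, to 16.7 and 19.1 CPM at day 7, against 0.121 and 1.22 CPM in sham (log2 fold change 4.63 ± 1.13, edgeR adjusted p = 0.0227). Mmp9, the gelatinase of neutrophil granules, had 6.20 and 57.6 CPM in the day 7 libraries, against 4775 and 3964 CPM in the sham libraries. Mmp9 fell with the neutrophil marker sums, of which it is a member, with a log2 fold change of -7.10 ± 1.51 (edgeR adjusted p = 0.0144), -9.58 in replicate 1 and -6.10 in replicate 2. Plaur, the urokinase receptor, fell to 150.2 and 199 CPM at day 7, against 561 and 609.7 CPM in sham (log2 fold change -1.74 ± 0.50, edgeR adjusted p = 0.0398), and Cd44, the hyaluronan and osteopontin receptor, to 237 and 134 CPM at day 7, against 1611 and 759 CPM in sham (log2 fold change -2.68 ± 0.74, edgeR adjusted p = 0.037). Mmp14 and Mmp12 kept the call in all 4 fits that each left out 1 library. Plau, Mmp9, Plaur and Cd44 lost the call without day 7 replicate 1 (edgeR adjusted p 0.0737 to 0.216), and Sparc, Plau, Plaur and Cd44 without day 7 replicate 2 (edgeR adjusted p 0.0764 to 0.213). Sparc, Plau, Mmp9, Plaur and Cd44 lost the call without sham replicate 1 (edgeR adjusted p 0.0596 to 0.198), and Sparc, Plaur and Cd44 without sham replicate 2 (edgeR adjusted p 0.0622 to 0.121). Matrix and protease calls numbered 4, 3, 3 and 4 higher and 0, 1, 0 and 1 lower without day 7 replicates 1 and 2 and sham replicates 1 and 2, in that order.

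Of 27 growth factor genes 9 rose and none fell. Those that rose were Igf1, Gdf15, Vegfb, Fgf1, Pdgfa, Tgfa, Areg, Grn and Gdf3, and the median log2 fold change was 2.71, with 2.66 in replicate 1 and 2.58 in replicate 2. Gdf15, a stress-induced cytokine of the transforming growth factor beta family, had 72.8 and 72.2 CPM in the day 7 libraries, against 1.33 and 0.559 CPM in the sham libraries. Gdf15 rose with a log2 fold change of 6.31 ± 1.05 (edgeR adjusted p = 0.00492), 5.74 in replicate 1 and 6.95 in replicate 2. Vegfb, a vascular endothelial growth factor, had 39.05 and 67.1 CPM in the day 7 libraries, against 0.788 and 0.856 CPM in the sham libraries. Vegfb rose with a log2 fold change of 6.01 ± 1.09 (edgeR adjusted p = 0.00733), 5.59 in replicate 1 and 6.25 in replicate 2. Pdgfa, a growth factor for oligodendrocyte precursors whose exons overlap another gene over 27.6% of their length, had 15.1 and 21.4 CPM in the day 7 libraries, against 0.424 and 0.392 CPM in the sham libraries. Pdgfa was even within groups, with a log2 fold change of 5.49 ± 0.81 (edgeR adjusted p = 0.00317), 5.07 in replicate 1 and 5.68 in replicate 2. Fgf1 had 5.18 and 2.71 CPM at day 7, against 0 and 0.131 CPM in sham (log2 fold change 5.56 ± 1.24, edgeR adjusted p = 0.0165). Vegfa, the main angiogenic factor, had 81.3 and 31.9 CPM at day 7, against 43.2 and 37.5 CPM in sham and was not called (log2 fold change 0.49 ± 0.78, edgeR adjusted p = 0.721), and Tgfb1 had 103 and 56.8 CPM at day 7, against 153 and 71.04 CPM in sham and was not called (log2 fold change -0.49 ± 0.49, edgeR adjusted p = 0.544). Pdgfa kept the call in all 4 fits that each left out 1 library. Fgf1 lost the call without day 7 replicate 1 (edgeR adjusted p = 0.0881), and Vegfb and Fgf1 without sham replicate 1 (edgeR adjusted p 0.0602 to 0.0842). Gdf15 and Vegfb lost the call without sham replicate 2 (edgeR adjusted p 0.0525 to 0.0612). The list held 4, 5, 4 and 4 higher calls without day 7 replicates 1 and 2 and sham replicates 1 and 2, in that order.

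Integrins and adhesion genes gave 5 higher and 6 lower of 25, with a median log2 fold change of -0.04 that was 0.09 with upper-quartile scaling. Itgb5, the subunit that binds Mfge8 on dying cells together with the alpha V subunit, had 1761 and 1873 CPM in the day 7 libraries, against 89.5 and 89.3 CPM in the sham libraries. Replicates were nearly equal, and Itgb5 rose with a log2 fold change of 4.35 ± 0.66 (edgeR adjusted p = 0.00355), 4.30 in replicate 1 and 4.39 in replicate 2. Itgav, the alpha V subunit, rose to 339 and 91.4 CPM at day 7, against 63.4 and 31.98 CPM in sham (log2 fold change 2.17 ± 0.63, edgeR adjusted p = 0.0435), Itga6, a laminin receptor subunit, to 222 and 140.3 CPM at day 7, against 14.1 and 8.58 CPM in sham (log2 fold change 4.003 ± 0.69, edgeR adjusted p = 0.0059), and Vcam1, the ligand of the integrin VLA-4, to 10.03 and 12.8 CPM at day 7, against 0.121 and 0.808 CPM in sham (log2 fold change 4.46 ± 0.70, edgeR adjusted p = 0.00388). Itgal, the alpha subunit of LFA-1, had 83.4 and 57.3 CPM in the day 7 libraries, against 949.7 and 491 CPM in the sham libraries. Itgal fell with a log2 fold change of -3.36 ± 0.995 (edgeR adjusted p = 0.0463), -3.51 in replicate 1 and -3.10 in replicate 2. Itga1, a collagen receptor subunit, fell to 0.872 and 1.27 CPM at day 7, against 17.2 and 16.3 CPM in sham (log2 fold change -3.95 ± 0.90, edgeR adjusted p = 0.0174). Itgam, the CD11b subunit carried by microglia and by blood myeloid cells, had 600.4 and 419 CPM at day 7, against 1006 and 696 CPM in sham and was not called (log2 fold change -0.74 ± 0.75, edgeR adjusted p = 0.557). Itgb5 and Vcam1 kept the call in all 4 fits that each left out 1 library. Itgav, Itgal and Itga1 lost the call without day 7 replicate 1 and sham replicate 1 (edgeR adjusted p 0.0667 to 0.386), and Itgal and Itga1 without day 7 replicate 2 (edgeR adjusted p 0.0944 to 0.227). Itgav, Itga6, Itgal and Itga1 lost the call without sham replicate 2 (edgeR adjusted p 0.0579 to 0.212). Adhesion calls numbered 3, 4, 3 and 2 higher and 0, 0, 0 and 0 lower without day 7 replicates 1 and 2 and sham replicates 1 and 2, in that order.

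Of 28 immediate early genes 8 fell and 2 rose, with a median log2 fold change of -0.94, -1.02 in replicate 1 and -0.82 in replicate 2. Klf2, a transcription factor of quiescence, had 53.1 and 40.2 CPM in the day 7 libraries, against 1357 and 833 CPM in the sham libraries. Both sham libraries were high, and Klf2 fell with a log2 fold change of -4.55 ± 0.78 (edgeR adjusted p = 0.00568), -4.67 in replicate 1 and -4.37 in replicate 2. Junb had 1728 and 1343 CPM in the day 7 libraries, against 9702 and 5359.6 CPM in the sham libraries. Junb fell with a log2 fold change of -2.29 ± 0.55 (edgeR adjusted p = 0.0208), -2.49 in replicate 1 and -1.997 in replicate 2. Egr1 fell to 498 and 407 CPM at day 7, against 3666 and 1734 CPM in sham (log2 fold change -2.58 ± 0.61, edgeR adjusted p = 0.0199), Btg2 to 295 and 167 CPM at day 7, against 2842 and 1269 CPM in sham (log2 fold change -3.15 ± 0.76, edgeR adjusted p = 0.0217) and Ier2 to 252 and 249 CPM at day 7, against 1734 and 1259 CPM in sham (log2 fold change -2.58 ± 0.60, edgeR adjusted p = 0.0191). Fos had 2131 and 1821 CPM at day 7, against 4750.4 and 4257 CPM in sham and was not called (log2 fold change -1.19 ± 0.53, edgeR adjusted p = 0.16). Nr4a2, an orphan nuclear receptor, rose to 16.5 and 15.7 CPM at day 7, against 4.18 and 2.71 CPM in sham (log2 fold change 2.23 ± 0.57, edgeR adjusted p = 0.0269). Hspa1a, an inducible heat shock protein, rose to 250.2 and 109.9 CPM at day 7, against 28.1 and 23.9 CPM in sham (log2 fold change 2.79 ± 0.76, edgeR adjusted p = 0.0349), but 60.5% of its 50-base words also occur in Hspa1b, so the reads may be shared. Klf2, Junb, Egr1, Btg2, Ier2, Nr4a2 and Hspa1a lost the call without day 7 replicate 1 and day 7 replicate 2 (edgeR adjusted p 0.0505 to 0.186), and Junb, Egr1, Btg2, Ier2, Nr4a2 and Hspa1a without sham replicate 1 (edgeR adjusted p 0.095 to 0.155). Ier2, Nr4a2 and Hspa1a lost the call without sham replicate 2 (edgeR adjusted p 0.0548 to 0.157). Immediate early calls numbered 0, 0, 0 and 0 higher and 0, 0, 1 and 5 lower without day 7 replicates 1 and 2 and sham replicates 1 and 2, in that order.

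Among 27 colony-stimulating factor receptors and myeloid transcription factors 2 rose and 5 fell, with a median log2 fold change of 0.16 that was -0.34 without day 7 replicate 1. Bhlhe41, a repressor found in microglia and other tissue macrophages, had 20.4 and 19.3 CPM in the day 7 libraries, against 0.485 and 0.428 CPM in the sham libraries. Bhlhe41 rose with a log2 fold change of 5.45 ± 0.996 (edgeR adjusted p = 0.00742), 5.33 in replicate 1 and 5.42 in replicate 2. Csf3r, the receptor that drives neutrophil formation and a member of the neutrophil marker list, had 115 and 136 CPM in the day 7 libraries, against 3806 and 2518 CPM in the sham libraries. Csf3r fell with a log2 fold change of -4.65 ± 0.88 (edgeR adjusted p = 0.0081), -5.05 in replicate 1 and -4.21 in replicate 2. Cebpd had 18.9 and 24.4 CPM in the day 7 libraries, against 528 and 413 CPM in the sham libraries. Cebpd fell with a log2 fold change of -4.44 ± 0.83 (edgeR adjusted p = 0.00794), -4.80 in replicate 1 and -4.08 in replicate 2. Cebpb, its relative, fell to 1350.1 and 1414 CPM at day 7, against 8672 and 10082 CPM in sham (log2 fold change -2.76 ± 0.58, edgeR adjusted p = 0.013), and Spi1, which encodes the myeloid factor PU.1, to 378 and 469 CPM at day 7, against 1403 and 1588 CPM in sham (log2 fold change -1.82 ± 0.47, edgeR adjusted p = 0.0267). Of 21 genes of alternative activation 2 rose, Ccl22 and Cd36, and 1 fell. These were 9.52% and 4.76% of the list, near the 7.00% and 5.63% over all genes tested. Il13ra1, a receptor chain of interleukin-13, fell to 80.95 and 68.04 CPM at day 7, against 523 and 553 CPM in sham (log2 fold change -2.85 ± 0.57, edgeR adjusted p = 0.0107). Arg1, arginase, had 4.12 and 3.70 CPM at day 7, against 0.182 and 0.487 CPM in sham, with groups that did not overlap, and was not called (log2 fold change 3.44 ± 1.10, edgeR adjusted p = 0.0593). Csf3r, Cebpd, Cebpb, Spi1 and Il13ra1 lost the call without day 7 replicate 1 and day 7 replicate 2 (edgeR adjusted p 0.0609 to 0.174), and Bhlhe41, Cebpb, Spi1 and Il13ra1 without sham replicate 1 (edgeR adjusted p 0.05 to 0.0947). Bhlhe41, Cebpb and Spi1 lost the call without sham replicate 2 (edgeR adjusted p 0.0588 to 0.098). Calls among receptors and myeloid factors numbered 1, 1, 0 and 0 higher and 0, 0, 2 and 2 lower without day 7 replicates 1 and 2 and sham replicates 1 and 2, in that order. The alternative activation median was -0.63 and became 0.17 without sham replicate 1.

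**Figure D4:**
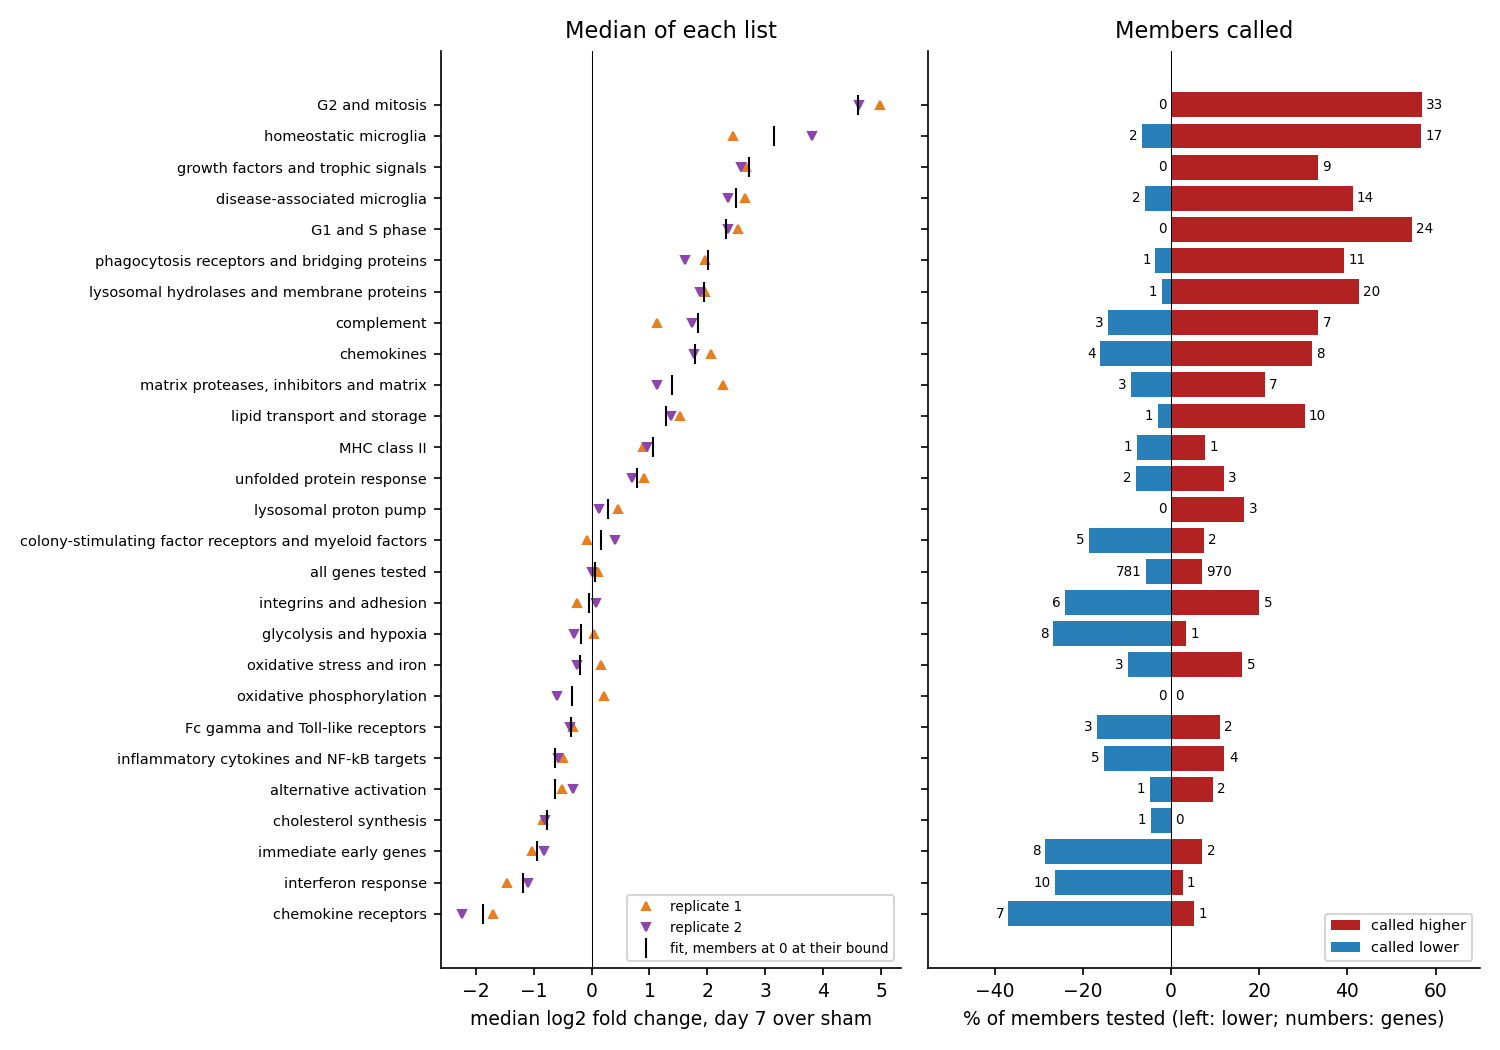
Left, median log2 fold change of day 7 over sham for 26 gene lists and all genes tested, pooled (line) and within replicate 1 and replicate 2 (triangles). Right, percent of each list's tested members called higher (red, to the right) or lower (blue, to the left), with numbers of genes. G2 and mitosis heads the lists at a median of 4.59 with 33 genes higher and 0 lower, and chemokine receptors close them at -1.87 with 1 higher and 7 lower.

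Day 7 was also set against the mean of the other 5 stroke times, a comparison that shares the day 7 libraries with the one above and holds no sham library. By edgeR 5 of 13861 genes were called (0.0361%), 3 higher (0.0216%) and 2 lower (0.0144%), against 998 at an unadjusted p under 0.05, 268 by DESeq2 and 38 by limma-voom. Ednrb, the endothelin B receptor, had 83.2 and 42.1 CPM at day 7, 48.2 and 89.8 CPM at day 1 and 53.4 and 30.7 CPM at day 3, and between 1.48 and 3.93 CPM in the 6 libraries of days 21, 60 and 90. It was therefore high at the 3 early times and not at day 7 alone, with a log2 fold change of 2.91 ± 0.38 (edgeR adjusted p = 0.027). Mrc1, the mannose receptor, had 12.4 and 14.1 CPM at day 7 and between 23.9 and 301 CPM in the 10 libraries of other times. Both day 7 libraries were below all 10, with a log2 fold change of -2.49 ± 0.36 (edgeR adjusted p = 0.0469). Lilra5, a leukocyte immunoglobulin-like receptor, had 1.21 and 0.985 CPM at day 7 and between 2.57 and 38.9 CPM at the other times. Lilra5 was likewise below all 10, with a log2 fold change of -3.27 ± 0.45 (edgeR adjusted p = 0.0368). Cd109 and Angptl2, which are below the abundance asked of named genes and were chosen after their values were seen, were the other 2. Cd109, a membrane protein that binds transforming growth factor beta, had 51.2 and 20.7 CPM at day 7 and at most 6.31 CPM elsewhere, with a log2 fold change of 3.81 ± 0.41 (edgeR adjusted p = 0.00951). Angptl2, an angiopoietin-like secreted protein, had 185.7 and 66.6 CPM at day 7 and at most 24.0 CPM elsewhere, with a log2 fold change of 4.18 ± 0.55 (edgeR adjusted p = 0.027). Ednrb lost the call without day 7 replicate 1, day 7 replicate 2, sham replicate 1 and sham replicate 2 (edgeR adjusted p 0.0507 to 0.531) and had adjusted p between 1.65e-06 and 0.531 over all alternatives. Mrc1 lost the call without day 7 replicate 1, day 7 replicate 2, sham replicate 1 and sham replicate 2 (edgeR adjusted p 0.0717 to 0.648) and had adjusted p between 6.69e-11 and 0.648 over all alternatives. Lilra5 lost the call without day 7 replicate 1, day 7 replicate 2, sham replicate 1 and sham replicate 2 (edgeR adjusted p 0.0688 to 0.607) and had adjusted p between 2.27e-11 and 0.607 over all alternatives. Cd109 lost the call without day 7 replicate 1 (edgeR adjusted p = 0.531) and had adjusted p between 1.72e-10 and 0.531 over all alternatives. Angptl2 lost the call without day 7 replicate 1, day 7 replicate 2, sham replicate 1 and sham replicate 2 (edgeR adjusted p 0.0646 to 0.531) and had adjusted p between 2.83e-07 and 0.531 over all alternatives.

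Against the other stroke times division genes were again the list with the highest median. Of the 58 genes of G2 and mitosis none was called by edgeR, but 49 were higher at an unadjusted p under 0.05, where 519 of all 13861 genes (3.74%) were, 22 were called by DESeq2 and 10 by limma-voom, and the median log2 fold change was 2.28 against -0.03 over all genes. Of 44 G1 and S phase genes none was called by edgeR, 18 were higher at an unadjusted p under 0.05, 2 were called higher by DESeq2 and 1 by limma-voom, and the median was 1.07. Plk1 reached 37.9 and 26.3 CPM at day 7, and between 0.781 and 21.1 CPM in the 10 libraries of other times. Chemokines had the lowest median, -1.64, followed by inflammatory cytokines at -1.26 and chemokine receptors at -1.25. Of 25 chemokine genes none was called by edgeR, 10 were lower at an unadjusted p under 0.05, where 479 of all genes (3.46%) were, 6 were called lower by DESeq2, which called 192 of all genes lower, and 1 by limma-voom. For 33 cytokine and NF-kB target genes the numbers were 0, 18, 9 and 2. The neutrophil markers were low at day 7 in this comparison as well, with a median of -3.03, and their part in these values was not tested. Il1b had 355 and 433 CPM at day 7 and between 1196 and 12346 CPM at the other times, with no overlap. Spp1 had 66734 and 75153 CPM at day 7 and between 1072 and 27179 CPM at the other times, and both day 7 libraries were above all 10, but the difference was not called (log2 fold change 3.63 ± 0.61, edgeR adjusted p = 0.0918). Homeostatic genes (median -0.06), lysosomal genes (0.37) and lipid genes (0.14) had no member called by edgeR, with 0, 8 and 2 higher at an unadjusted p under 0.05, 0, 0 and 0 called higher by DESeq2 and 0, 0 and 0 by limma-voom.

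**Figure D5:**
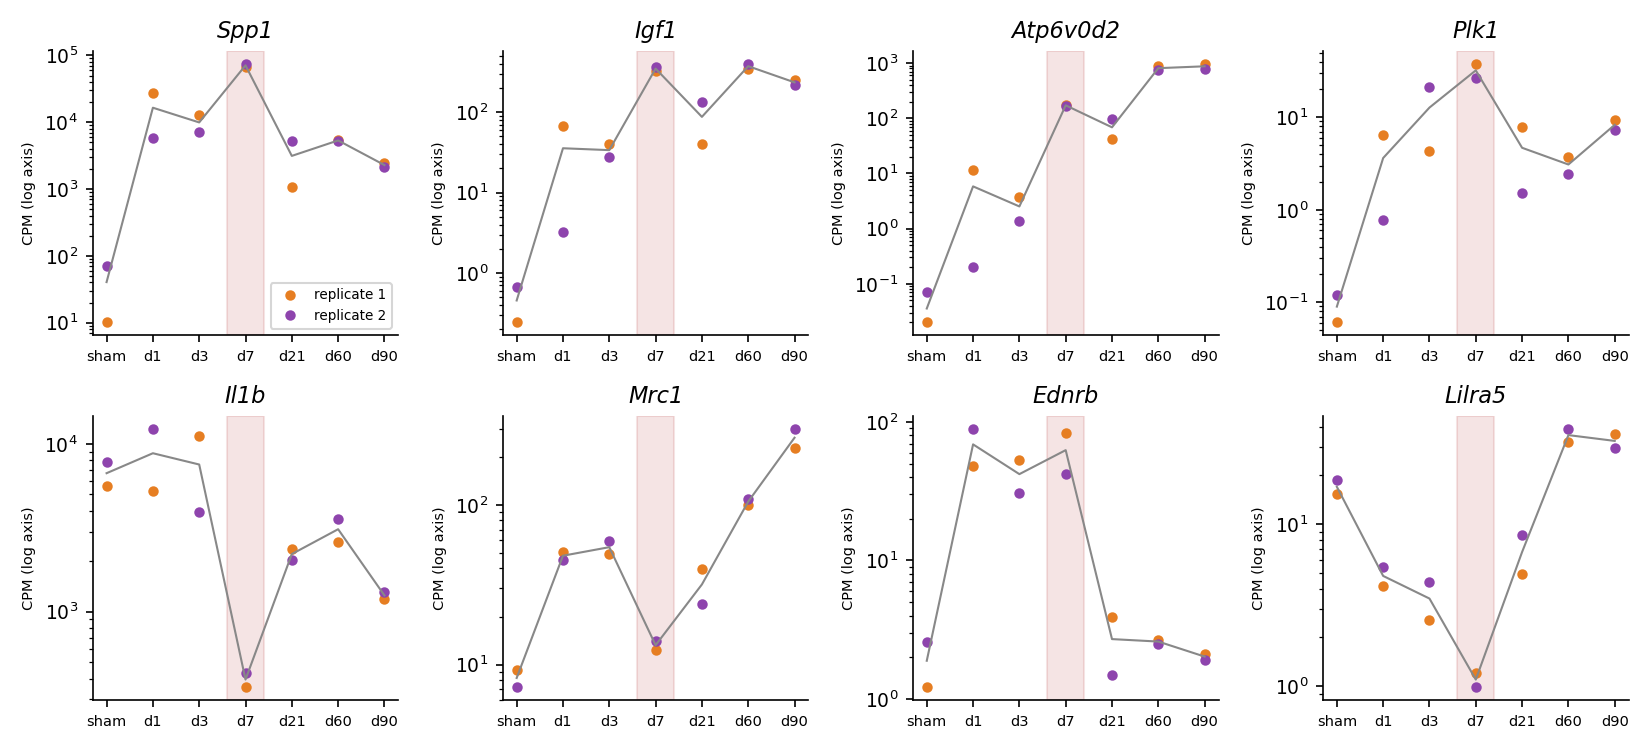
TMM-scaled CPM (log axis) of 8 genes in sham and at days 1, 3, 7, 21, 60 and 90 after stroke, with 1 point per library coloured by replicate number, a line through the group means and day 7 shaded. Spp1 and Plk1 are highest at day 7, Il1b, Mrc1 and Lilra5 are lower at day 7 than at every other time after stroke, Ednrb is high at days 1, 3 and 7, and Igf1 and Atp6v0d2 are high at days 7, 60 and 90 and lower at day 21.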

How the data were processed

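Of 14 RNA-seq libraries of sorted microglia, the 2 of day 7 and the 2 of sham are compared. The authors deposited 1 table of raw gene counts and 1 file per library. The 14084 values of each library were equal in both, and 23 symbols appear as dates in the files per library. The mm9 build, HTSeq 0.6.1 and Bowtie2 2.3.4.2 appear in the submitters' processing notes. Which annotation and strand setting were used, and how multiply aligned reads were treated, is not given in the sources used here, so reads of overlapping or antisense genes cannot be told apart. Promoters come from another build (GRCm38.p6), so coordinates are given for them alone.

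Of these genes 13861 passed edgeR's filter by group and 223 did not (edgeR 4.0.16 in R 4.3.3). After TMM scaling a robust quasi-likelihood model with 7 group means was fitted over the 14 libraries (7 residual degrees of freedom, biological coefficient of variation 0.639). Day 7 was tested against sham and against the mean of the other 5 stroke times, with Benjamini-Hochberg adjustment over all genes tested and no fold limit. A standard error is the log2 fold change over the root of its F statistic. Fold changes within a replicate number use log2 CPM with a prior count of 2. A gene without a count in a group was set to 3 counts over the group, which covers counting error only, and the fold then stands as a bound. Where a group has 1 to 3 counts, no fold is printed. List medians have such genes at their bound. At these totals 3 counts are 0.162 and 0.0224 CPM in the day 7 libraries and 0.197 and 0.0298 CPM in the sham libraries.

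The members, 26 gene lists and 16 marker lists were chosen with earlier results of these data known, and lists share members. Named genes are the 12 higher and 12 lower of largest change among those whose mean log2 CPM reached 3, up to 5 called members per list and direction, the genes called against the other stroke times at that abundance, a panel of 25 genes and the list members that moved against their list; some genes that this rule names are not reported here, and values of further list members are given as examples chosen after they were seen. Shared sequence was sought by 50-base words of the transcripts, and 313 of 14043 genes had at least 50% of their words in another gene. The scripts were tested on simulated data. Alternatives were DESeq2 1.42.0, limma-voom (limma 3.58.1), other scalings and filters, other sets of libraries, a replicate block, replicate 2 thinned to the depth of replicate 1, a minimum fold of 2 and each of the 4 libraries left out.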

Additional observations from a re-analysis of the deposited data

How the results depend on the processing

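Of the 1751 genes called against sham, 1750 were among the 3158 called by DESeq2 (3146 of them with the groups on separate sides), 1749 among the 2766 called with the replicate number as a block (2715 on separate sides) and 790 passed a minimum fold change of 2. With 1 of the 4 libraries left out the count was 355 to 464, and 36 of the 164 called genes chosen by the rule for named genes or as examples kept their call each time, while 103 of the 164 kept it in all other alternatives. The cause of these differences was not tested, but each of those fits has 1 sample in a group. Of the genes called against the other stroke times, 5 by edgeR, there were 268 by DESeq2, 38 by limma-voom, 8 without the day 21 libraries, 9 with the replicate block, 1 at a minimum fold change of 2 and 1 with each of the 4 libraries left out in turn. No label says that the replicate numbers pair the libraries. The deviations from the group means correlated at 0.565 between day 7 and sham and at 0.0710 to 0.677 over 21 pairs of groups, and the ratio of the total counts of replicate 2 over replicate 1 was 6.60 to 9.19 across the 7 groups. Upper-quartile scaling moved the median log2 fold change of all genes to 0.21, against 0.06, and gave 1136 higher and 651 lower genes.

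The medians of some lists changed sign. With each of the 4 libraries left out in turn, the median of complement ran between -0.36 and 2.06, that of oxidative stress and iron between -0.28 and 0.35, that of glycolysis and hypoxia between -0.49 and 0.17 and that of oxidative phosphorylation between -0.77 and 0.59. Integrins and adhesion ran between -0.49 and 0.26, alternative activation between -0.69 and 0.17, and colony-stimulating factor receptors and myeloid factors between -0.34 and 0.51. The sign turned without day 7 replicate 2 for complement and integrins and adhesion, without day 7 replicate 1 for the receptors, without sham replicate 2 for oxidative stress and iron, glycolysis and hypoxia, oxidative phosphorylation and the receptors, and without sham replicate 1 for integrins and adhesion and alternative activation. Integrins and adhesion also had 0.075 with limma-voom and 0.087 with upper-quartile scaling. No gene chosen by the rule for named genes and no other list median changed direction under an alternative. For genes given only as examples this was not checked. Depth limits low genes most in replicate 1, where 3 counts are 0.162 CPM at day 7 and 0.197 CPM in sham, although the number of genes at 0 did not follow depth over the 14 libraries.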

Other observations

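Of 12 border-associated macrophage markers 4 rose by edgeR (Stab1, Ms4a7, Folr2 and Cd209f), and their CPM summed to 2366 and 1697 in the day 7 libraries, against 1464 and 821 in the sham libraries, with Cd209f and Timd4 at 0 in sham. Both day 7 sums were above both sham sums, and 8 of the 12 genes had both day 7 libraries above sham and 1 had both below. Of 21 T and NK cell markers 3 rose (Cd4, Cd28 and Il7r) and Gzma fell, with sums of 145 and 107 CPM at day 7 and 79.5 and 99.8 CPM in sham. Il7r alone gave 64.5 and 20.0 CPM at day 7, against 0.787 and 0.427 CPM in sham. Against 27.6% and 32.1% of all genes, 8 of the 21 were below sham in both day 7 libraries and 4 above. Their median log2 fold change was -0.55, and DESeq2 called 4 higher and 5 lower. The dendritic cell markers summed to 188 and 208 CPM at day 7 and to 218 and 226 CPM in sham, with Siglech higher and Batf3 lower among 12. Mast cell and basophil markers summed to 1.35 and 6.01 CPM at day 7 and to 7.15 and 9.89 CPM in sham, and Cma1 fell. Plasma cell sums were 56.5 and 16.4 CPM at day 7 and 39.7 and 30.6 CPM in sham, and none of 6 markers was called by edgeR, while 3 had an unadjusted p under 0.05 and DESeq2 called 3 and limma-voom 0.

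Of 10 oligodendrocyte markers tested Mal rose and Mbp fell, with sums of 224 and 116 CPM at day 7 and 664 and 264 CPM in sham. Mbp alone gave 97.4 and 25.7 CPM at day 7 and 583 and 200 CPM in sham, while Mal had 0.270 and 0.298 CPM at day 7. The median log2 fold change was 1.10, with 3 genes above sham in both day 7 libraries and 1 below. The 12 pericyte and fibroblast markers summed to 99.2 and 194 CPM at day 7 and to 54.5 and 149.6 CPM in sham, with Rgs5 higher and Acta2 lower. In the 12-gene endothelial list Kdr was called, higher at day 7. The astrocyte sums were 21.9 and 17.2 CPM at day 7 and 4.13 and 17.6 CPM in sham, and the neuron sums 1.51 and 0.850 CPM at day 7 and 0.656 and 1.36 CPM in sham. None of their 10 and 9 markers was called by edgeR, while among the astrocyte markers 1 had an unadjusted p under 0.05, 1 was called by DESeq2 and 0 by limma-voom, and among the neuron markers all 3 numbers were 0.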
